A study of Homo sapiens with 22 samples.

Results

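THP-1 cells treated with the SWI/SNF inhibitor BRM014 for 72 h were set directly against THP-1 cells treated with the phorbol ester PMA. These were 2 libraries in each group, chosen by their titles, and so 4 of the 22 libraries of polyadenylated RNA in the series. THP-1 is an established human line of monocytic acute myeloid leukaemia that carries a KMT2A fusion gene. The BRM014 group had received 1 µM of the compound for 72 h. The PMA group had received 10 nM phorbol 12-myristate 13-acetate for 48 h and was then kept for 24 h without it. The 2 THP-1 libraries with the solvent DMSO are given as the background of both groups. The labels do not say how long the DMSO cells had been in culture, or whether replicates came from different cultures. A p-value here reflects how far replicate libraries scattered over all 11 groups of the series, and that scatter may be technical only. The compounds differ in target, dose and time, so the comparison is between the states of the cells under 2 regimens and not between doses.

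SWI/SNF complexes are chromatin remodellers that slide and evict nucleosomes with the ATPase SMARCA4 or SMARCA2, and BRM014 blocks both ATPases. PMA mimics diacylglycerol, activates protein kinase C and drives THP-1 cells out of proliferation into adherent, macrophage-like cells. The transcription factor PU.1, encoded by SPI1, is needed for monocytes and macrophages to form and works at many enhancers that depend on SWI/SNF. The comparison asks how the transcripts under SWI/SNF inhibition differ from those of cells that a known differentiating agent has driven towards macrophages.

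The 4 libraries held 16310590 to 20502830 reads in genes and detected 17274 to 18115 genes. Values are read counts normalised to library size (CPM), with the sizes scaled by TMM. Within them 3 counts in 1 library, the most that a count of 0 allows at 95% confidence, equal 0.153 to 0.174 CPM. Such floors cover counting error only. The leukocyte marker PTPRC was at 183 and 148 CPM with BRM014, 711 and 540.1 CPM with PMA and 287 and 301 CPM in DMSO. The myeloid antigen CD33 was at 22.2 and 20.7 CPM with BRM014, 77 and 83.2 CPM with PMA and 66.2 and 60.1 CPM in DMSO. CD4, which monocytes carry, was at 159 and 158 CPM with BRM014, 371 and 359 CPM with PMA and 189 and 192 CPM in DMSO. All 3 were present in each library. They are part of the markers set for a monocytic line, and others were low in a group. CSF1R was low with BRM014 and CD14 in DMSO, at levels given below. In bulk RNA, fewer cells of a type and less RNA per cell cannot be told apart.

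The 2 PMA libraries stood apart from each other more than the replicates of any other group did. Their counts differed by a chi-square of 30.9 per degree of freedom, against 3.16 to 11 in the other groups of the series. Among genes with a mean of at least 50 counts, 214 of the PMA pair (1.82%) differed over 2-fold, against 70 (0.584%) of the BRM014 pair. PFDN6 had 3 reads in PMA replicate 1 and 637 in replicate 2, SMDT1 had 152 and 1, and the 5-lipoxygenase gene ALOX5 had 299 and 12. On the log2 scale, replicate 2 minus replicate 1, PFDN6 differed by 7.13 in the PMA pair. It also differed by -5.69 in the BRM014 pair, so its split was not particular to PMA. In the BRM014 pair SMDT1 differed by -0.36 and ALOX5 by 1.47. The inflammatory transcripts LAMP3, BIRC3 and IL1B had more reads in PMA replicate 1, with 189, 132 and 167 reads against 14, 10 and 24. Reads outside annotated genes made up 16.02% and 12.43% of the reads counted in the PMA files and 19.17% and 18.8% in the BRM014 files. Counts of list members below, and the values of called genes, are therefore also given without a library where leaving it out moves them by more than 1.5 times.

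Of 16794 genes tested, 5103 were higher and 4997 lower with BRM014 than with PMA at an adjusted p under 0.05, in edgeR's quasi-likelihood test with Benjamini-Hochberg adjustment. This was 60.1% of the genes tested, 30.4% higher and 29.8% lower, and it is the background for each count below. With library size alone as the scaling, 6223 were higher and 4000 lower, and the median difference of all genes moved from 0.03 to 0.20 on the log2 scale. A log2 difference of at least 1 was reached by 2706 higher and 2189 lower genes, and one of at least 5 by 214 and 293. Against DMSO, 5188 genes rose and 4698 fell with BRM014 (58.9%), and 3177 rose and 2880 fell with PMA (36.1%). The last count has 2640 rises and 3794 falls with library size alone. Both of these comparisons share the DMSO libraries, so their values are set side by side and not related to each other. In the text, log2 differences are BRM014 minus PMA with their standard error unless DMSO is named, and "higher" or "lower" marks a called difference. Gene positions are those of GENCODE v29 on hg38.

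**Figure D1:**
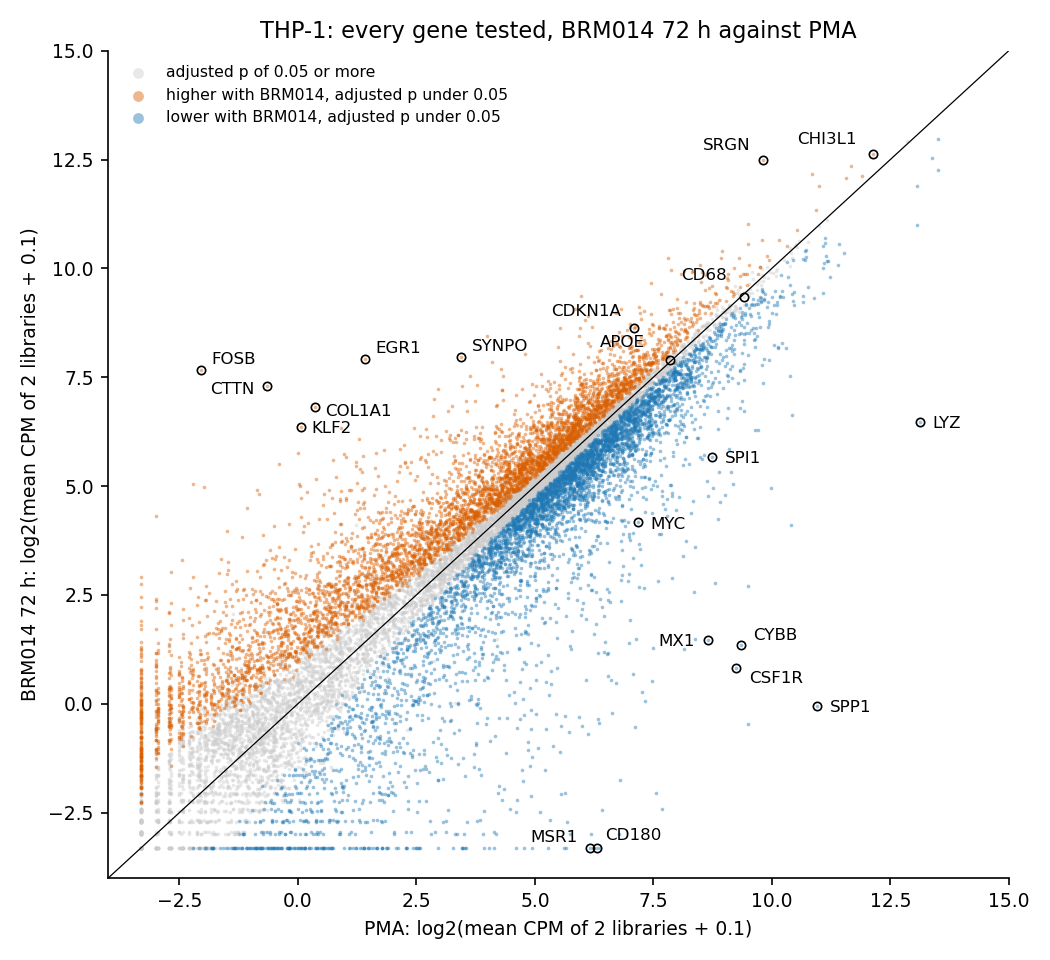
Mean expression of the 16794 tested genes with PMA (x axis) and with BRM014 for 72 h (y axis), each as log2 of the mean CPM of 2 libraries plus 0.1. Coloured points are the 5103 genes called higher and the 4997 called lower with BRM014, and genes at 0 in 1 group lie along the edge of that group's axis.

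Genes with at least 40 counts over 1 group and no read in the other lay mostly on the PMA side. Of these, 74 had no read in either BRM014 library and 32 had none in either PMA library. Without that minimum the sides were close. Of the 16794 genes tested, 389 had no read in either BRM014 library and 403 had none in either PMA library. Genes with no read in both groups count on both sides there. SLCO2B1, a transporter of organic anions, was at 0 CPM in both libraries with BRM014 and 99.5 and 65.9 CPM with PMA (at least 1013-fold lower, adjusted p = 5.0e-11). CD180, a relative of the toll-like receptors, was at 0 CPM in both libraries with BRM014 and 86.1 and 72.9 CPM with PMA (at least 967-fold lower, adjusted p = 7.7e-13). The scavenger receptor MSR1 was at 0 CPM in both libraries with BRM014 and 82.5 and 60.5 CPM with PMA (at least 873-fold lower, adjusted p = 4.0e-11). Both PMA libraries carried all 3 transcripts and neither BRM014 library did. In the other direction, the long noncoding RNA LINC01366 was at 8.66 and 6.26 CPM with BRM014 and 0 CPM in both libraries with PMA (at least 92.9-fold higher, adjusted p = 2.1e-10). EFEMP1, a matrix glycoprotein, was at 5.19 and 5.62 CPM with BRM014 and 0 CPM in both libraries with PMA (at least 66.7-fold higher, adjusted p = 3.7e-06). OLFML2A had 1 read with PMA and was at 18.8 and 20.5 CPM with BRM014 and 0.0511 and 0 CPM with PMA (727-fold higher, 95% counting interval 130.0 to 28750.0, adjusted p = 6.0e-12). The counting intervals cover counting error only.

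Among the ATPases that BRM014 blocks, the transcript of SMARCA4 did not pass the test and that of SMARCA2 did. SMARCA4 (chromosome 19, 10960825 to 11079426, plus strand) was at 206 and 223 CPM with BRM014, 217 and 237 CPM with PMA and 313 and 309.8 CPM in DMSO (log2 difference -0.08 ± 0.07, adjusted p = 0.33). SMARCA2 was at 262 and 262 CPM with BRM014, 303 and 306 CPM with PMA and 362 and 346 CPM in DMSO, slightly lower with BRM014 (log2 difference -0.22 ± 0.06, adjusted p = 0.0037). Both treated groups lay below DMSO for both ATPases. Of 27 tested SWI/SNF subunits, 14 were higher and 7 lower with BRM014, with a median log2 difference of 0.29. The higher ones were led by subunits that define the sub-complexes. BICRA, a subunit of the non-canonical complex, was at 41.3 and 41.6 CPM with BRM014 and 16.3 and 10.4 CPM with PMA (log2 difference 1.63 ± 0.16, adjusted p = 3.0e-08). Its paralogue BICRAL was at 128 and 129.6 CPM with BRM014 and 55.1 and 39.4 CPM with PMA (log2 difference 1.44 ± 0.10, adjusted p = 2.2e-10). ARID1B, a DNA-binding subunit of the canonical complex, was at 292 and 299 CPM with BRM014, 119.9 and 99 CPM with PMA and 146 and 153 CPM in DMSO (log2 difference 1.43 ± 0.09, adjusted p = 1.5e-11). ARID2, which marks the PBAF form, was at 126 and 115 CPM with BRM014, 64.5 and 50.7 CPM with PMA and 124 and 117 CPM in DMSO (log2 difference 1.06 ± 0.11, adjusted p = 3.8e-08). For ARID2 the BRM014 libraries overlapped DMSO while the PMA libraries lay below, whereas for ARID1B they lay above DMSO. SMARCD2 was lower at 67.8 and 68.3 CPM with BRM014 and 111 and 136 CPM with PMA (log2 difference -0.86 ± 0.08, adjusted p = 2.5e-08). ACTL6A was at 67.4 and 69.8 CPM with BRM014 and 97.6 and 98 CPM with PMA (log2 difference -0.51 ± 0.07, adjusted p = 2.0e-06). In a fit of the 4 libraries alone, 9 subunits were higher and 3 lower, and 4 were lower with scaling by library size alone.

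Genes that replicate DNA were lower with BRM014 almost throughout. Of 34 tested, 33 were lower and 0 higher (median log2 difference -0.90). Against DMSO, all 34 fell with BRM014 (median -1.21) and 23 fell with PMA (median -0.33). ORC1, which marks replication origins, was at 29 and 26.7 CPM with BRM014, 86.3 and 103 CPM with PMA and 119 and 120.0 CPM in DMSO (log2 difference -1.77 ± 0.09, adjusted p = 2.1e-12). MCM3 (chromosome 6, 52264009 to 52284881, minus strand), a subunit of the replicative helicase, was at 184 and 193 CPM with BRM014, 515 and 545 CPM with PMA and 675 and 654 CPM in DMSO (log2 difference -1.49 ± 0.06, adjusted p = 5.9e-14). MCM5, of the same ring, was at 95.3 and 103 CPM with BRM014, 216 and 283 CPM with PMA and 304 and 318 CPM in DMSO (log2 difference -1.33 ± 0.10, adjusted p = 3.9e-10). For these 3 genes the 4 treated libraries fell into 2 groups that did not overlap, both below DMSO. PCNA, the sliding clamp of the polymerases, was at 37.8 and 32.2 CPM with BRM014, 65 and 71.6 CPM with PMA and 71.7 and 79.1 CPM in DMSO (log2 difference -0.96 ± 0.09, adjusted p = 1.6e-08). POLD1, a catalytic subunit of polymerase delta, was the member not called, at 115 and 131 CPM with BRM014 and 122 and 169.7 CPM with PMA (log2 difference -0.25 ± 0.12, adjusted p = 0.075). RFC3, of the clamp loader, was lower with a log2 difference of -1.51 ± 0.10.

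Mitotic genes showed smaller differences in the same direction. Of 30 tested, 23 were lower and 0 higher (median -0.53), and all 30 fell against DMSO with BRM014, whereas 23 fell with PMA. KIF2C, a microtubule depolymerase, was at 79.9 and 79.8 CPM with BRM014, 161 and 183 CPM with PMA and 215 and 227 CPM in DMSO (log2 difference -1.11 ± 0.08, adjusted p = 1.7e-10). CCNA2, the cyclin of S phase and G2, was at 61.9 and 63.1 CPM with BRM014, 120.2 and 120.0 CPM with PMA and 153 and 146 CPM in DMSO (log2 difference -0.94 ± 0.07, adjusted p = 3.0e-10). MKI67, the proliferation antigen Ki-67, was at 183 and 175 CPM with BRM014, 341 and 274 CPM with PMA and 323 and 303 CPM in DMSO (log2 difference -0.78 ± 0.09, adjusted p = 2.0e-07). For MKI67 the PMA libraries overlapped the DMSO values, and the BRM014 libraries lay below both. PLK1, a kinase of mitotic entry, was at 83.3 and 76.6 CPM with BRM014, 133 and 128 CPM with PMA and 205 and 207 CPM in DMSO (log2 difference -0.71 ± 0.07, adjusted p = 6.7e-08). The kinesin CENPE was at 89.1 and 78.8 CPM with BRM014 and 94.2 and 83.3 CPM with PMA (log2 difference -0.08 ± 0.20, adjusted p = 0.75). The spindle gene ASPM was at 140.3 and 137 CPM with BRM014 and 183 and 134 CPM with PMA (log2 difference -0.19 ± 0.19, adjusted p = 0.41). Neither of them passed the test. The kinesin gene KIF11 was lower with a log2 difference of -0.73 ± 0.09.

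The promoters of these genes are shown because the members of each list moved one way. Sequences are from RefSeq on GRCh38.p14, read 5′ to 3′ along the gene's strand, and each is 60 bases from the 250 before the start site, searched on both strands. Capitals in the first pair mark the E2F letters TTTCCCGC or their reverse complement, and in the second pair the cell cycle homology region TTTGAA.
MCM3: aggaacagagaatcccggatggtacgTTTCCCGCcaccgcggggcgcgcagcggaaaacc
GINS2: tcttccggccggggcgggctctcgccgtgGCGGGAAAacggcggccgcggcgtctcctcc
PLK1: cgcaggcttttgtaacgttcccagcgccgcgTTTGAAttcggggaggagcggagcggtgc
CCNB2: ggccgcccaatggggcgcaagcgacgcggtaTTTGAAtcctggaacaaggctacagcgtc
They lie at chr6:52284883-52284942, minus strand (MCM3), chr16:85688955-85689014, minus strand (GINS2), chr16:23678829-23678888, plus strand (PLK1) and chr15:59105086-59105145, plus strand (CCNB2). The E2F letters occurred in 8 of 30 promoters of the replication list (26.7%) and in 1.7% of the 27303 in the table. The cell cycle homology letters occurred in 14 of 25 mitosis promoters (56.0%) against 16.1% of all. A match describes these letters only. GINS2, a subunit of the helicase complex, was at 15.9 and 13.5 CPM with BRM014, 31.2 and 36.7 CPM with PMA and 41 and 38.4 CPM in DMSO (log2 difference -1.20 ± 0.11, adjusted p = 5.1e-09). CCNB2, a mitotic cyclin, was at 43.5 and 38.6 CPM with BRM014, 57 and 58.7 CPM with PMA and 78.9 and 89.9 CPM in DMSO (log2 difference -0.49 ± 0.09, adjusted p = 1.1e-04).

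Among G1 cyclins, kinases and inhibitors the directions divided, with 8 higher and 13 lower of 25. CDKN1A (chromosome 6, 36676460 to 36687339, plus strand), the p21 inhibitor of cyclin-dependent kinases, was at 384 and 406 CPM with BRM014, 133 and 138 CPM with PMA and 24.6 and 23 CPM in DMSO (log2 difference 1.55 ± 0.08, adjusted p = 1.8e-12). It lay above DMSO in all 4 treated libraries, and the BRM014 libraries were the higher pair. CCND1, cyclin D1, was at 66.2 and 70.1 CPM with BRM014, 10.6 and 12.5 CPM with PMA and 4.38 and 3.75 CPM in DMSO (log2 difference 2.57 ± 0.13, adjusted p = 6.6e-13). CDKN1B, the p27 inhibitor, was at 51.9 and 49.9 CPM with BRM014, 24.1 and 16.4 CPM with PMA and 40.3 and 32.6 CPM in DMSO (log2 difference 1.33 ± 0.13, adjusted p = 2.2e-08). For p27 the PMA libraries lay below DMSO and the BRM014 libraries above. CDK6 was higher at 524 and 482 CPM with BRM014 and 296 and 219.5 CPM with PMA (log2 difference 0.96 ± 0.10, adjusted p = 7.3e-08). CDK4, a kinase of the same step, was lower at 99.4 and 103 CPM with BRM014 and 151 and 195 CPM with PMA (log2 difference -0.77 ± 0.09, adjusted p = 5.8e-07). CDC25A, the phosphatase that releases G1 kinases, was at 25.2 and 28.4 CPM with BRM014, 52.1 and 53.6 CPM with PMA and 73.2 and 72.1 CPM in DMSO (log2 difference -0.98 ± 0.10, adjusted p = 7.1e-08). RBL1, the pocket protein p107, was at 48 and 47.5 CPM with BRM014 and 97.1 and 83.9 CPM with PMA (log2 difference -0.92 ± 0.10, adjusted p = 1.8e-07). RBL2, p130, was higher at 203 and 174 CPM with BRM014 and 116 and 92.5 CPM with PMA (log2 difference 0.85 ± 0.09, adjusted p = 7.7e-08). Among the cyclins, lower members also included CCND2 (21.6-fold lower, 95% counting interval 5.62 to 184) and CCNE2 (log2 difference -0.79 ± 0.13).

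MYC (chromosome 8, 127735434 to 127741434, plus strand) was lower with BRM014. It was at 18.3 and 17.5 CPM with BRM014, 146 and 143 CPM with PMA and 262 and 284 CPM in DMSO (log2 difference -3.01 ± 0.09, adjusted p = 4.6e-16), below DMSO in all 4 treated libraries and with the 2 treated pairs far apart. MYC drives ribosome production. The list of MYC and ribosome biogenesis genes holds MYC itself and LDHA beside ribosome genes. Of its 30 tested genes, 28 were lower with BRM014 and 0 higher (median -1.14). Against DMSO, 29 fell with BRM014 (median -1.45) and 19 with PMA (median -0.31). LDHA, lactate dehydrogenase A, was at 241 and 244 CPM with BRM014, 824 and 996 CPM with PMA and 896 and 949 CPM in DMSO (log2 difference -1.91 ± 0.09, adjusted p = 2.5e-13). The ribosome assembly factor RRP12 was at 15.1 and 11.4 CPM with BRM014, 44.6 and 50 CPM with PMA and 46.1 and 54.9 CPM in DMSO (log2 difference -1.83 ± 0.13, adjusted p = 1.6e-10). NOP2, a methyltransferase of ribosomal RNA, was at 15.4 and 15.5 CPM with BRM014, 46 and 51.9 CPM with PMA and 53.5 and 48.7 CPM in DMSO (log2 difference -1.66 ± 0.09, adjusted p = 1.7e-12). For these 3 the PMA libraries overlapped DMSO and the BRM014 libraries lay below. Nucleolin, NCL, was at 609 and 615 CPM with BRM014 and 1275 and 1523 CPM with PMA (log2 difference -1.19 ± 0.07, adjusted p = 1.3e-11).

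**Figure D2:**
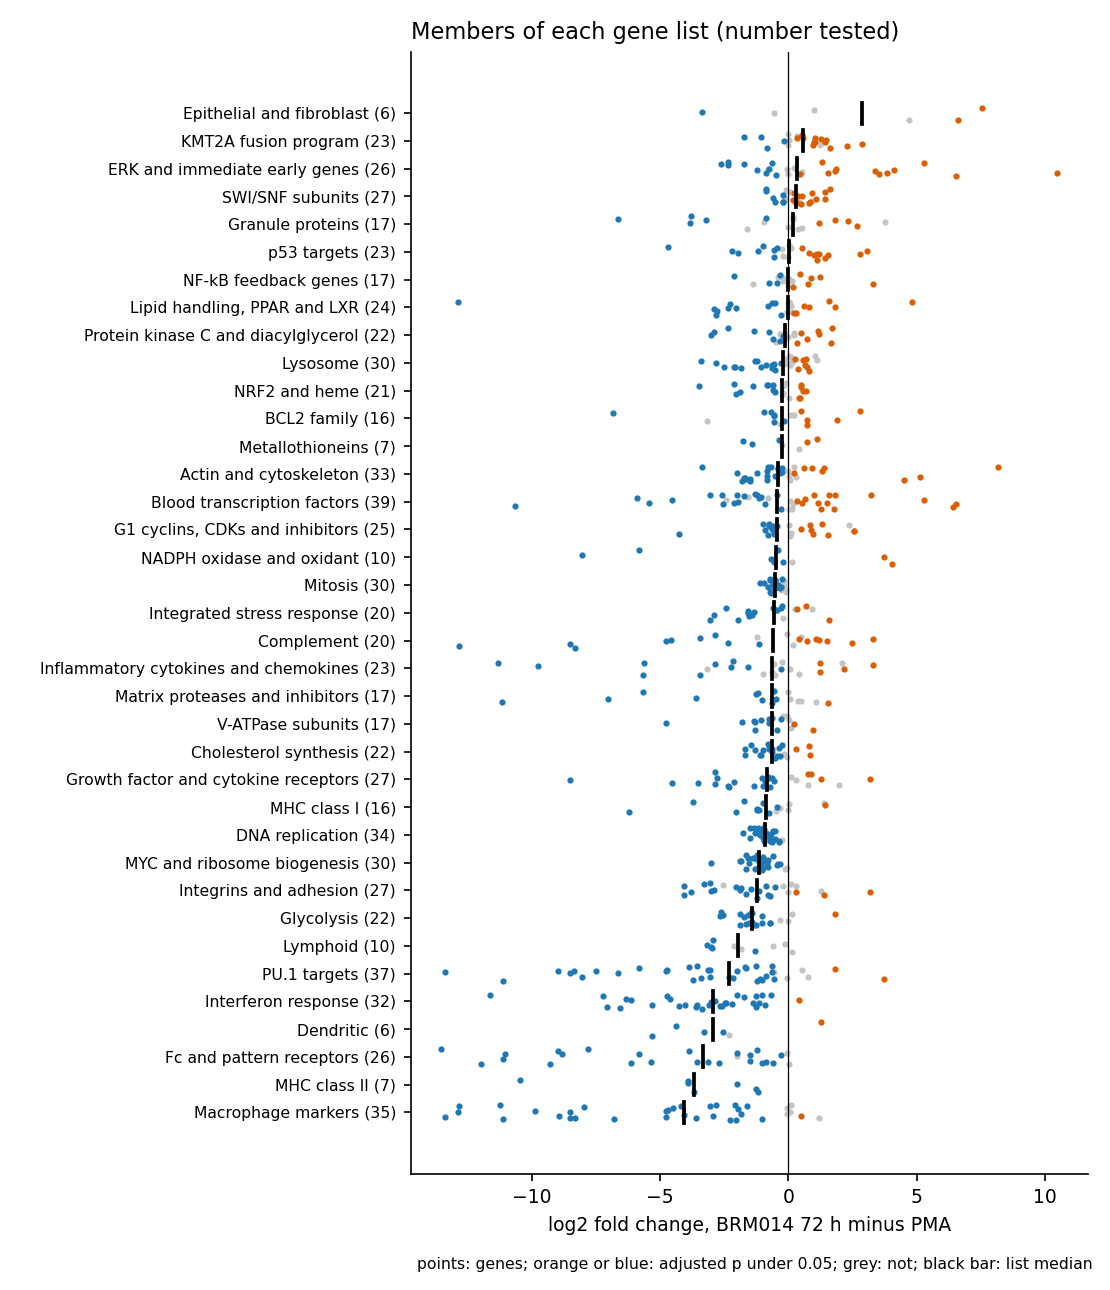
For each gene list with at least 6 tested members, the log2 difference BRM014 72 h minus PMA of its members (x axis), 1 point per gene, with black bars at the list medians. Coloured points passed the test, and the macrophage (median -4.06), MHC class II, pattern receptor (-3.35) and interferon (-2.93) lists lie far to the left.

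SPI1 itself (chromosome 11, 47354860 to 47378576, minus strand) was lower with BRM014. It was at 52.3 and 49.7 CPM with BRM014, 377 and 478 CPM with PMA and 299 and 315 CPM in DMSO (log2 difference -3.07 ± 0.12, adjusted p = 4.2e-14), with the BRM014 pair below DMSO and the PMA pair above. Of 39 tested blood transcription factors, 14 were higher and 18 lower. CEBPE, a factor of late granulocyte maturation, was at 0 CPM in both libraries with BRM014, 7.1 and 14.7 CPM with PMA and 11.2 and 10.1 CPM in DMSO (at least 129-fold lower, adjusted p = 2.9e-10, and at least 85.9-fold lower without PMA replicate 2). MAF, a factor of mature macrophages, was at 2.83 and 1.45 CPM with BRM014, 96.8 and 90 CPM with PMA and 2.63 and 2.35 CPM in DMSO (log2 difference -5.43 ± 0.28, adjusted p = 1.6e-10). It was high in the PMA libraries, and with BRM014 it overlapped DMSO. IRF8, a monocyte and dendritic cell factor, was at 202 and 195 CPM with BRM014, 421 and 511 CPM with PMA and 817 and 816 CPM in DMSO (log2 difference -1.23 ± 0.09, adjusted p = 1.8e-10), below DMSO in both groups. TFEC, a factor of the MITF family found in macrophages, was at 33.1 and 30.3 CPM with BRM014, 216 and 165 CPM with PMA and 137 and 137 CPM in DMSO (log2 difference -2.59 ± 0.14, adjusted p = 4.1e-12). The list also held BHLHE41 (76.4-fold lower, 95% counting interval 13.3 to 3056), and the PU.1 targets below held TLR7 (641-fold lower, 95% counting interval 115 to 25340.0), a sensor of single-stranded RNA.

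Other blood factors were higher with BRM014. PPARG, the nuclear receptor of lipid handling, was at 161 and 160.1 CPM with BRM014, 50.6 and 39.9 CPM with PMA and 15.4 and 15.4 CPM in DMSO (log2 difference 1.83 ± 0.09, adjusted p = 9.1e-13). The oxysterol receptor NR1H3 was at 67.3 and 63.8 CPM with BRM014, 21.7 and 21.7 CPM with PMA and 9.2 and 11.6 CPM in DMSO (log2 difference 1.59 ± 0.15, adjusted p = 9.5e-09). Both were above DMSO in all 4 treated libraries, with the BRM014 pair higher. RUNX1 was at 558 and 509.9 CPM with BRM014, 262 and 221 CPM with PMA and 344 and 354 CPM in DMSO (log2 difference 1.14 ± 0.07, adjusted p = 5.6e-11). GFI1 was at 418 and 430.0 CPM with BRM014, 167 and 189 CPM with PMA and 367 and 357 CPM in DMSO (log2 difference 1.25 ± 0.06, adjusted p = 1.6e-12). KLF2, a factor of quiescence, was at 90.1 and 74.5 CPM with BRM014, 1.02 and 0.858 CPM with PMA and 5.57 and 3.95 CPM in DMSO (log2 difference 6.44 ± 0.20, adjusted p = 1.1e-15). For KLF2 the PMA pair lay below DMSO and the BRM014 pair above. CEBPA did not pass the test at 529 and 577 CPM with BRM014 and 423 and 558 CPM with PMA (log2 difference 0.17 ± 0.10, adjusted p = 0.16). KLF4 did not pass it either, at 75.6 and 61.8 CPM with BRM014, 66.9 and 64 CPM with PMA and 30.7 and 30.7 CPM in DMSO (log2 difference 0.07 ± 0.12, adjusted p = 0.64).

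Known targets of PU.1 were lower as a list, with 31 of 37 lower and 2 higher (median -2.31). CSF1R, the receptor for M-CSF (chromosome 5, 150053291 to 150113372, minus strand), was at 1.63 and 1.68 CPM with BRM014, 633 and 588 CPM with PMA and 100.1 and 91.9 CPM in DMSO (log2 difference -8.52 ± 0.17, adjusted p = 2.4e-18). LYZ, lysozyme, was at 87.2 and 91.1 CPM with BRM014, 8691 and 9153 CPM with PMA and 1933 and 1772 CPM in DMSO (log2 difference -6.64 ± 0.09, adjusted p = 1.6e-21). BTK, a kinase of B-cell and Fc receptor signalling, was at 9.29 and 11 CPM with BRM014, 131 and 138 CPM with PMA and 118 and 122 CPM in DMSO (log2 difference -3.73 ± 0.09, adjusted p = 4.0e-17). For CSF1R and LYZ, DMSO lay between the 2 treated pairs, whereas for BTK the step from DMSO to PMA did not pass the test. TYROBP, an adaptor of activating receptors, was at 67.5 and 70.2 CPM with BRM014, 291 and 394 CPM with PMA and 73.1 and 69 CPM in DMSO (log2 difference -2.31 ± 0.12, adjusted p = 1.8e-12). Its BRM014 libraries overlapped the DMSO values. NCF1 was higher at 59.9 and 63.8 CPM with BRM014 and 5.92 and 3.26 CPM with PMA (log2 difference 3.73 ± 0.17, adjusted p = 1.7e-13), and near-identical copies of this gene make its counts uncertain. ELANE, neutrophil elastase, was the other higher member at 31.3 and 27.4 CPM with BRM014 and 5.77 and 11.1 CPM with PMA (log2 difference 1.81 ± 0.52, adjusted p = 0.0051), and it lost its call without PMA replicate 1 (log2 difference 1.40, adjusted p = 0.061).

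**Figure D3:**
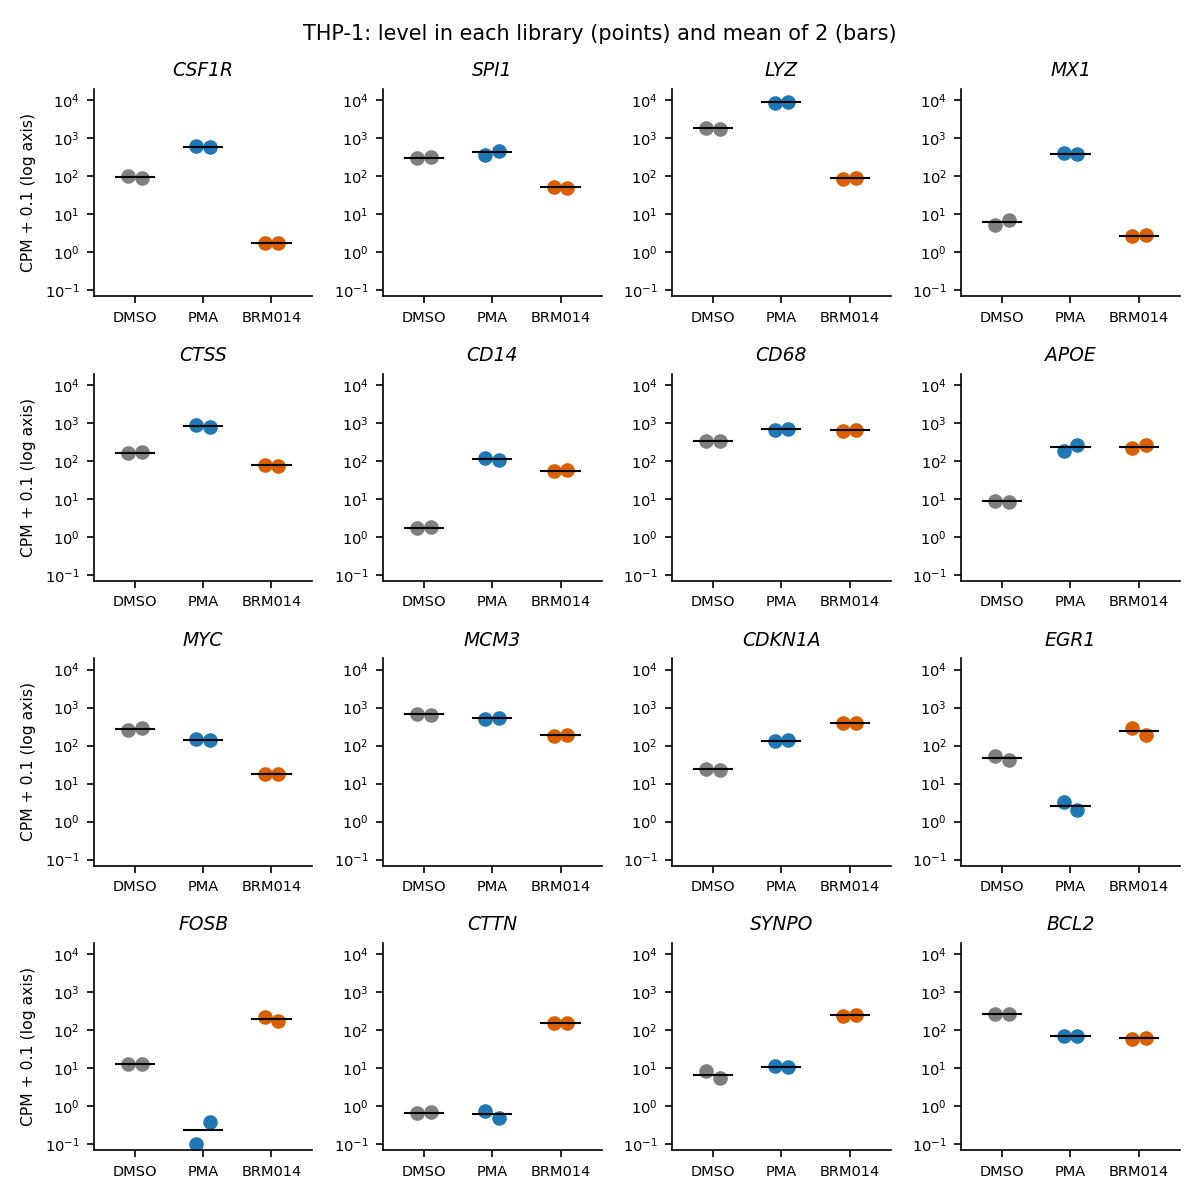
CPM plus 0.1 (log y axis) of 16 named genes in the 2 DMSO, 2 PMA and 2 BRM014 72 h libraries, each point a library and each bar the mean of 2. CSF1R, SPI1, LYZ and MX1 lie low with BRM014, CD68 and APOE lie together in both treated groups, and FOSB, EGR1, CTTN and SYNPO lie high with BRM014.

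Immediate early genes, which transcription factors of the SRF and TCF families switch on after ERK signalling, were higher with BRM014 in part. Of 26 tested, 12 were higher and 9 lower. FOSB was at 228 and 177 CPM with BRM014, 0 and 0.286 CPM with PMA and 12.8 and 13.2 CPM in DMSO (log2 difference 10.48 ± 0.38, adjusted p = 8.6e-15, and 9.43 without PMA replicate 1 and at least 1328-fold higher without PMA replicate 2). EGR1 (chromosome 5, 138465490 to 138469315, plus strand) was at 289 and 196 CPM with BRM014, 3.22 and 1.89 CPM with PMA and 54 and 42.1 CPM in DMSO (log2 difference 6.55 ± 0.22, adjusted p = 2.8e-15). EGR3 was at 8.92 and 4.0 CPM with BRM014, 0.153 and 0.172 CPM with PMA and 2.5 and 0.85 CPM in DMSO (log2 difference 5.27 ± 0.56, adjusted p = 1.5e-07, and 4.57 without BRM014 replicate 1). FOS was at 747 and 571 CPM with BRM014, 66 and 59.9 CPM with PMA and 274 and 289 CPM in DMSO (log2 difference 3.39 ± 0.15, adjusted p = 9.1e-14). For each of these 4 the order of the libraries was BRM014 above DMSO above PMA, without overlap. DUSP1, a phosphatase that ends MAP kinase signals, was at 48.4 and 35.3 CPM with BRM014, 2.81 and 1.94 CPM with PMA and 8.83 and 11.2 CPM in DMSO (log2 difference 4.13 ± 0.19, adjusted p = 2.2e-13). DUSP4 was at 160.4 and 158 CPM with BRM014, 14.6 and 12.6 CPM with PMA and 4.38 and 5.45 CPM in DMSO (log2 difference 3.55 ± 0.13, adjusted p = 7.7e-15). DUSP6, which acts on ERK, was at 155 and 133 CPM with BRM014, 161 and 142 CPM with PMA and 58 and 62.7 CPM in DMSO (log2 difference -0.07 ± 0.10, adjusted p = 0.53), above DMSO in both treated groups. PHLDA1 was lower at 6.56 and 7.65 CPM with BRM014, 50.8 and 37.5 CPM with PMA and 2.32 and 2.7 CPM in DMSO (log2 difference -2.64 ± 0.21, adjusted p = 1.4e-09). ATF3 was lower at 4.25 and 1.91 CPM with BRM014 and 18.9 and 13 CPM with PMA (log2 difference -2.36 ± 0.29, adjusted p = 8.6e-07, and -3.06 without BRM014 replicate 1). ETV5 was at 18.5 and 18.7 CPM with BRM014 and 74.4 and 49.5 CPM with PMA (log2 difference -1.74 ± 0.13, adjusted p = 6.7e-10).

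The EGR1 promoter is shown because the gene moved in opposite directions from DMSO, and capitals mark each stretch that fits the CArG box, the site that SRF reads.
EGR1: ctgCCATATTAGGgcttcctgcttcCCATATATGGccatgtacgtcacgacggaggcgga
It lies at chr5:138465371-138465430, plus strand. A CArG box was found in 2 of 19 promoters of the list (10.5%), against 1.44% of all promoters in the table. It was also found in 5 of 27 promoters of the actin list (18.5%) and 1 of 5 of MHC class II (20.0%). In those lists most called members were lower with BRM014. This motif was added after results were seen, and its part in the differences was not tested.

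Macrophage markers gave the widest separation of the lists. Of 35 tested, 29 were lower with BRM014 and 1 was higher (2 without PMA replicate 2), with a median log2 difference of -4.06. Against DMSO, 31 rose with PMA (median 3.94), and with BRM014 12 rose and 14 fell (median -1.05). FABP4, a fatty acid carrier, was at 0 CPM in both libraries with BRM014, 41.9 and 59 CPM with PMA and 0 CPM in both libraries in DMSO (at least 605-fold lower, adjusted p = 6.0e-08), and DESeq2 did not call it. C1QC, a chain of complement C1q, was at 0 CPM in both libraries with BRM014, 48.9 and 48.9 CPM with PMA and 0.125 and 0 CPM in DMSO (at least 592-fold lower, adjusted p = 9.0e-09). SPP1, osteopontin, was at 1.21 and 0.522 CPM with BRM014, 2067 and 1894 CPM with PMA and 7.2 and 8.35 CPM in DMSO (log2 difference -11.12 ± 0.25, adjusted p = 3.9e-17, and -11.87 without BRM014 replicate 1). CD163, the haemoglobin scavenger receptor, had 3 reads with BRM014 and was at 0.0525 and 0.116 CPM with BRM014 and 98.3 and 71.3 CPM with PMA (1035-fold lower, 95% counting interval 354 to 5024, adjusted p = 1.3e-09). CD86, a co-stimulatory ligand, was at 0 CPM in both libraries with BRM014, 17.1 and 15.6 CPM with PMA and 0.501 and 0.35 CPM in DMSO (at least 198-fold lower, adjusted p = 1.4e-11). All of these were high in both PMA libraries, and none of them was above DMSO with BRM014. GPNMB was at 6.45 and 6.43 CPM with BRM014, 773 and 673 CPM with PMA and 31.5 and 30.8 CPM in DMSO (log2 difference -6.81 ± 0.13, adjusted p = 2.4e-18). ITGAX, CD11c, was at 9.76 and 8.29 CPM with BRM014, 163 and 139.6 CPM with PMA and 53.3 and 49.2 CPM in DMSO (log2 difference -4.06 ± 0.17, adjusted p = 1.8e-13).

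Some of the markers were raised over DMSO by both treatments. CD14, the lipopolysaccharide co-receptor, was at 53.2 and 59.2 CPM with BRM014, 123 and 107 CPM with PMA and 1.63 and 1.7 CPM in DMSO (log2 difference -1.04 ± 0.14, adjusted p = 2.0e-06). FN1, fibronectin, was at 48.8 and 46 CPM with BRM014, 216 and 129 CPM with PMA and 5.7 and 4.85 CPM in DMSO (log2 difference -1.86 ± 0.18, adjusted p = 2.2e-08). CD36, a scavenger receptor, was at 116 and 105 CPM with BRM014, 605 and 476 CPM with PMA and 34.2 and 30.7 CPM in DMSO (log2 difference -2.29 ± 0.15, adjusted p = 6.0e-11). In all 3 the BRM014 pair lay between DMSO and PMA. CD68 (chromosome 17, 7579467 to 7582113, plus strand), a lysosomal glycoprotein, was at 636 and 669.7 CPM with BRM014, 654 and 707 CPM with PMA and 327 and 347 CPM in DMSO (log2 difference -0.06 ± 0.06, adjusted p = 0.44). APOE, the apolipoprotein, was at 223 and 257 CPM with BRM014, 189 and 272 CPM with PMA and 8.95 and 8.4 CPM in DMSO (log2 difference 0.06 ± 0.15, adjusted p = 0.75). APOC1 was at 65.7 and 76.5 CPM with BRM014, 64.1 and 83.5 CPM with PMA and 17.3 and 16.8 CPM in DMSO (log2 difference -0.05 ± 0.21, adjusted p = 0.85). For CD68, APOE and APOC1 the treated groups overlapped and both lay above DMSO. For APOE, PMA replicate 1 lay below both BRM014 libraries and PMA replicate 2 above both. Without PMA replicate 2 its level was therefore higher with BRM014. An absent call does not show equal levels, and the standard errors above set how large a difference could remain. CHI3L1, a chitinase-like protein, was the 1 member higher with BRM014, at 6255 and 6325 CPM with BRM014, 4275 and 4699.6 CPM with PMA and 2063 and 2085 CPM in DMSO (log2 difference 0.49 ± 0.07, adjusted p = 9.7e-06). ITGAM, CD11b, was at 28.9 and 27.8 CPM with BRM014, 240.4 and 237 CPM with PMA and 30.7 and 24.7 CPM in DMSO (log2 difference -3.07 ± 0.10, adjusted p = 1.0e-15), with BRM014 overlapping DMSO.

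Complement genes divided, with 7 of 20 higher and 9 lower. The recognition chain C1QA was at 0.157 and 0.116 CPM with BRM014, 41.9 and 51.9 CPM with PMA and 0 and 0.20 CPM in DMSO (log2 difference -8.35 ± 0.48, adjusted p = 7.9e-10). C5AR1, the receptor for C5a, was at 2.57 and 2.03 CPM with BRM014, 27.5 and 22.7 CPM with PMA and 0.438 and 0.30 CPM in DMSO (log2 difference -3.44 ± 0.30, adjusted p = 4.6e-09). CFD, the protease factor D of the alternative pathway, was higher at 27.1 and 22.3 CPM with BRM014, 1.38 and 3.66 CPM with PMA and 2.0 and 3.2 CPM in DMSO (log2 difference 3.32 ± 0.53, adjusted p = 2.0e-05, and 4.16 without PMA replicate 2). SERPING1, the C1 inhibitor, was higher at 8.5 and 10.3 CPM with BRM014, 2.5 and 0.858 CPM with PMA and 0.188 and 0.35 CPM in DMSO (log2 difference 2.46 ± 0.42, adjusted p = 1.8e-04, and 3.44 without PMA replicate 1). CD55 and CD46 protect cells from complement. CD55 was higher at 64.3 and 66.4 CPM with BRM014, 28 and 29.3 CPM with PMA and 22.4 and 22.5 CPM in DMSO (log2 difference 1.19 ± 0.08, adjusted p = 2.0e-10). CD46 was at 516 and 468 CPM with BRM014, 264 and 205 CPM with PMA and 195 and 207 CPM in DMSO (log2 difference 1.07 ± 0.10, adjusted p = 1.3e-08). C1QB, another C1q chain, was at 0 CPM in both libraries with BRM014 and 4.09 and 0.801 CPM with PMA (at least 30.7-fold lower, adjusted p = 0.002, and at least 9.69-fold lower without PMA replicate 1 and at least 49.5-fold lower without PMA replicate 2), mostly in PMA replicate 1, and DESeq2 did not call it. C3, the central component, was at 1182 and 1329 CPM with BRM014, 1062 and 841 CPM with PMA and 95.4 and 90.8 CPM in DMSO (log2 difference 0.40 ± 0.09, adjusted p = 5.3e-04), above DMSO in all 4 treated libraries.

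Interferon response genes were lower with BRM014 in 31 of 32 tested and higher in 1, IFITM2 (median -2.93). IFITM2 was at 49 and 49 CPM with BRM014, 33.9 and 40.1 CPM with PMA and 37.6 and 37.5 CPM in DMSO (log2 difference 0.41 ± 0.14, adjusted p = 0.016), and its call was lost without PMA replicate 1 (log2 difference 0.29, adjusted p = 0.12), BRM014 replicate 1 (log2 difference 0.41, adjusted p = 0.058) or BRM014 replicate 2 (log2 difference 0.41, adjusted p = 0.057). No member was called higher under any of these or in a fit of the 4 libraries alone. Against DMSO, 31 rose with PMA (median 3.32), and with BRM014 15 rose and 7 fell (median 0.46). MX1 (chromosome 21, 41420304 to 41459214, plus strand), an antiviral GTPase, was at 2.57 and 2.72 CPM with BRM014, 417 and 384 CPM with PMA and 5.07 and 7.25 CPM in DMSO (log2 difference -7.24 ± 0.17, adjusted p = 2.0e-17). IFI44L had 1 read with BRM014 and was at 0.0525 and 0 CPM with BRM014 and 142 and 78.2 CPM with PMA (4058-fold lower, 95% counting interval 728 to 160300.0, adjusted p = 1.8e-13). IFITM1, a membrane antiviral protein, was at 0.21 and 0.174 CPM with BRM014, 31.2 and 22.5 CPM with PMA and 4.01 and 4.2 CPM in DMSO (log2 difference -7.07 ± 0.32, adjusted p = 1.8e-13). OAS1, a sensor of double-stranded RNA, was at 2.41 and 1.91 CPM with BRM014, 95.6 and 79.9 CPM with PMA and 2.69 and 3.2 CPM in DMSO (log2 difference -5.33 ± 0.30, adjusted p = 5.0e-12). Each was far higher in both PMA libraries than in any BRM014 or DMSO library. A further set lay between DMSO and PMA with BRM014. IFIT2 was at 16.8 and 15.9 CPM with BRM014, 48.2 and 29.4 CPM with PMA and 1.82 and 1.55 CPM in DMSO (log2 difference -1.25 ± 0.18, adjusted p = 7.2e-06). IFIT3 was at 12.9 and 12.8 CPM with BRM014, 99.9 and 84.9 CPM with PMA and 3.13 and 2.75 CPM in DMSO (log2 difference -2.85 ± 0.15, adjusted p = 2.6e-12), and in both genes BRM014 was called above DMSO. The GTPase GBP1 was lower with a log2 difference of -6.57 ± 0.44, and -7.47 without BRM014 replicate 1. CXCL10, an interferon-induced chemokine, was at 0 CPM in both libraries with BRM014, 26.5 and 8.29 CPM with PMA and 0.125 and 0.65 CPM in DMSO (at least 216-fold lower, adjusted p = 4.8e-07, and at least 100.4-fold lower without PMA replicate 1), with PMA replicate 1 above replicate 2.

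Promoters of 3 members are shown because the list moved one way, and capitals mark the core of the interferon-stimulated response element, GAAA and any 2 bases and GAAA, or its reverse complement. Matches that overlap run together in the capitals.
IFIT1: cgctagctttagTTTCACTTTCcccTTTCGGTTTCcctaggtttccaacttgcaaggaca
ISG15: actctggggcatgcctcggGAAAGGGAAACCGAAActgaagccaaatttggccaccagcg
RSAD2: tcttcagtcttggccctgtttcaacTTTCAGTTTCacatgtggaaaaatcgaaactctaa
They lie at chr10:89392495-89392554, plus strand (IFIT1), chr1:1013365-1013424, plus strand (ISG15) and chr2:6877607-6877666, plus strand (RSAD2). The letters occurred in 16 of 22 promoters of the list (72.7%), against 3.71% of all promoters in the table. This motif was added after results were seen. The list was chosen as genes that respond to interferon, so the share describes its promoters and says nothing of the treatments. IFIT1 was at 3.62 and 8.35 CPM with BRM014, 83 and 61.8 CPM with PMA and 1.13 and 1.1 CPM in DMSO (log2 difference -3.61 ± 0.33, adjusted p = 9.5e-09, and -4.32 without BRM014 replicate 2). ISG15, a ubiquitin-like modifier, was at 11.7 and 13.4 CPM with BRM014, 129 and 166 CPM with PMA and 7.89 and 7.4 CPM in DMSO (log2 difference -3.56 ± 0.16, adjusted p = 1.7e-13). RSAD2, viperin, was at 7.45 and 7.19 CPM with BRM014, 66.1 and 52.5 CPM with PMA and 6.64 and 7.35 CPM in DMSO (log2 difference -3.02 ± 0.21, adjusted p = 2.3e-10).

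All 7 tested MHC class II genes were lower. HLA-DRA was at 0 CPM in both libraries with BRM014, 8.53 and 10.7 CPM with PMA and 0.751 and 1.2 CPM in DMSO (at least 116-fold lower, adjusted p = 5.6e-07). The invariant chain CD74 was at 23.6 and 26.6 CPM with BRM014, 337 and 311 CPM with PMA and 134 and 140.5 CPM in DMSO (log2 difference -3.69 ± 0.10, adjusted p = 2.0e-16). CIITA, the master regulator of the class, was at 0.315 and 0.116 CPM with BRM014 and 3.01 and 3.72 CPM with PMA (log2 difference -3.90 ± 0.77, adjusted p = 2.0e-04, and 28.9-fold lower [95% counting interval 7.82 to 241] without BRM014 replicate 1). DMSO lay between the treated pairs for CD74. Of 16 class I pathway genes, 10 were lower and 1 was higher (2 without PMA replicate 1, without BRM014 replicate 1 or with no filter). PSMB10, a subunit of the immunoproteasome, was at 36.2 and 37 CPM with BRM014, 118 and 186 CPM with PMA and 156 and 158 CPM in DMSO (log2 difference -2.05 ± 0.15, adjusted p = 3.6e-10). HLA-B was at 383 and 463 CPM with BRM014, 831 and 1142 CPM with PMA and 395 and 379.5 CPM in DMSO (log2 difference -1.22 ± 0.15, adjusted p = 4.3e-07). Lower too were HLA-DQB1 (log2 difference -3.91 ± 0.45), PSMB9 (log2 difference -3.71 ± 0.86, and 69.8-fold lower [95% counting interval 12.3 to 2775] without BRM014 replicate 1 and -2.92 without BRM014 replicate 2) and TAP2 (log2 difference -1.74 ± 0.24). HLA-F was at 0 CPM in both libraries with BRM014 and 0.409 and 0.572 CPM with PMA, under 1 CPM throughout, and its call was lost without PMA replicate 2 (adjusted p = 0.057), without BRM014 replicate 1 (adjusted p = 0.1) and without BRM014 replicate 2 (adjusted p = 0.089). NLRC5, the regulator of class I genes, was the higher one at 219 and 234 CPM with BRM014, 90.5 and 79 CPM with PMA and 59.4 and 57.4 CPM in DMSO (log2 difference 1.42 ± 0.08, adjusted p = 1.3e-11). HLA genes share sequence with one another, so their counts are uncertain.

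Fc and pattern receptors were lower in 23 of 26 tested and higher in 0 (median -3.35). The C-type lectin CLEC5A was at 0 CPM in both libraries with BRM014, 26.7 and 27.6 CPM with PMA and 5.76 and 4.7 CPM in DMSO (at least 328-fold lower, adjusted p = 8.9e-11). CLEC7A, dectin-1, had 1 read with BRM014 and was at 0.0525 and 0 CPM with BRM014 and 86 and 58.2 CPM with PMA (2647-fold lower, 95% counting interval 475 to 104600.0, adjusted p = 2.2e-12). FCGR3A, CD16, was at 0 CPM in both libraries with BRM014, 15.3 and 14.8 CPM with PMA and 0 CPM in both libraries in DMSO (at least 182-fold lower, adjusted p = 2.3e-07), and it has a close copy. TLR4, the lipopolysaccharide receptor, was at 7.82 and 7.48 CPM with BRM014, 135 and 92.8 CPM with PMA and 22.9 and 29.9 CPM in DMSO (log2 difference -3.90 ± 0.19, adjusted p = 7.2e-13). Its partner LY96 had 2 reads with BRM014 and was at 0 and 0.116 CPM with BRM014 and 16.4 and 11.9 CPM with PMA (259-fold lower, 95% counting interval 71.4 to 2145, adjusted p = 3.3e-09). All 5 were higher in both PMA libraries than in both BRM014 libraries. NLRP3, an inflammasome sensor, was at 72.7 and 64.8 CPM with BRM014, 138 and 116 CPM with PMA and 153 and 156 CPM in DMSO (log2 difference -0.89 ± 0.09, adjusted p = 2.3e-08), below DMSO in both groups.

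The NADPH oxidase of phagocytes was lower in 7 of 10 genes and higher in 2 (DUOX1 and NCF1), and lower in 4 without PMA replicate 2. CYBB, its catalytic subunit gp91phox, was at 2.78 and 2.14 CPM with BRM014, 759.5 and 545 CPM with PMA and 20.3 and 21.3 CPM in DMSO (log2 difference -8.04 ± 0.18, adjusted p = 8.3e-18). CYBA, p22phox, was at 420.4 and 534 CPM with BRM014, 520.1 and 1000.2 CPM with PMA and 500.4 and 544 CPM in DMSO (log2 difference -0.67 ± 0.20, adjusted p = 0.0068), with PMA replicate 1 inside the range of the BRM014 libraries. Its call was lost without PMA replicate 2 (log2 difference -0.12, adjusted p = 0.51) and without BRM014 replicate 1 (log2 difference -0.51, adjusted p = 0.093). NCF4, p40phox, was lower with a log2 difference of -0.56 ± 0.17, but not without PMA replicate 2 (log2 difference -0.21, adjusted p = 0.27) or BRM014 replicate 1 (log2 difference -0.53, adjusted p = 0.054). DUOX1, another oxidase, was higher at 9.39 and 11.5 CPM with BRM014 and 0.46 and 0.801 CPM with PMA (log2 difference 4.05 ± 0.35, adjusted p = 4.6e-09).

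Cytokines and chemokines divided, with 4 of 23 higher (CCL20, CSF1, OSM and VEGFA) and 10 lower. CCL22, a chemokine of macrophages and dendritic cells, was at 0 CPM in both libraries with BRM014, 6.59 and 4.98 CPM with PMA and 6.89 and 7.65 CPM in DMSO (at least 70.5-fold lower, adjusted p = 6.2e-09). CXCL8, interleukin-8, was at 6.35 and 3.59 CPM with BRM014, 50 and 22.4 CPM with PMA and 23.2 and 15.9 CPM in DMSO (log2 difference -2.86 ± 0.31, adjusted p = 1.0e-07, and -2.16 without PMA replicate 1). The chemokine CXCL2 (63.7-fold lower, 95% counting interval 11 to 2553) was lower. CCL2, a chemokine that draws monocytes, had 2 reads with BRM014 and was at 0 and 0.116 CPM with BRM014 and 4.49 and 1.66 CPM with PMA (57.3-fold lower, 95% counting interval 15.5 to 479, adjusted p = 2.2e-05, and 30.1-fold lower [95% counting interval 7.62 to 260.5] without PMA replicate 1), with PMA replicate 1 above replicate 2. IL1RN, the interleukin-1 receptor antagonist, was at 20.7 and 19.9 CPM with BRM014, 61.4 and 59.3 CPM with PMA and 14.5 and 16.2 CPM in DMSO (log2 difference -1.57 ± 0.13, adjusted p = 4.1e-09). CCL20 was higher at 5.72 and 6.09 CPM with BRM014, 0.817 and 0.343 CPM with PMA and 0 and 0.45 CPM in DMSO (log2 difference 3.31 ± 0.43, adjusted p = 1.3e-06, and 4.08 without PMA replicate 1). OSM was higher at 6.56 and 8.12 CPM with BRM014, 1.33 and 1.94 CPM with PMA and 2.32 and 1.75 CPM in DMSO (log2 difference 2.17 ± 0.19, adjusted p = 5.8e-09). VEGFA was at 138 and 134 CPM with BRM014, 64.7 and 51 CPM with PMA and 41.1 and 33 CPM in DMSO (log2 difference 1.23 ± 0.11, adjusted p = 7.1e-09). IL1B was at 3.2 and 3.54 CPM with BRM014, 8.53 and 1.37 CPM with PMA and 0.689 and 0.95 CPM in DMSO (log2 difference -0.57 ± 0.44, adjusted p = 0.28). CCL5 was at 1.47 and 13.2 CPM with BRM014, 2.4 and 20.3 CPM with PMA and 1.31 and 2.3 CPM in DMSO (log2 difference -0.63 ± 0.88, adjusted p = 0.56). For IL1B the PMA libraries, and for CCL5 the libraries of both treated groups, differed more within a group than the groups did. Without PMA replicate 1, IL1B was higher with BRM014 (log2 difference 1.29, adjusted p = 0.0021), and without PMA replicate 2 it was lower (log2 difference -1.34, adjusted p = 9.3e-05). CSF1 lost its call without PMA replicate 2 (log2 difference 0.70, adjusted p = 0.15) and without BRM014 replicate 1 (log2 difference 1.08, adjusted p = 0.072). IL6, CCL3 and CCL4 had no read in the 6 THP-1 libraries given here.

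Feedback genes of NF-kB gave 6 higher and 4 lower (CD83, NFKB1, NFKBIB and NFKBIE) of 17. The 6 higher became 3 in a fit of the 4 libraries alone, in a fit of the THP-1 libraries and with a replicate block. The 4 lower became 7 without PMA replicate 2 or with no filter, and 2 without BRM014 replicate 2, in the fit of 4 libraries, with the block and with scaling by library size alone. BCL3 was at 42.2 and 45.9 CPM with BRM014, 5.92 and 2.8 CPM with PMA and 1.31 and 1.6 CPM in DMSO (log2 difference 3.32 ± 0.20, adjusted p = 1.4e-11, and 3.97 without PMA replicate 1). NFKB2 was at 32 and 36.9 CPM with BRM014, 22.2 and 15 CPM with PMA and 10.1 and 10.1 CPM in DMSO (log2 difference 0.88 ± 0.14, adjusted p = 1.9e-05). The list also held TNFAIP2 (log2 difference 1.24 ± 0.11) and TRAF1 (log2 difference 0.77 ± 0.31, and 1.83 without PMA replicate 1), of which TRAF1 lost its call without PMA replicate 2 (log2 difference 0.18, adjusted p = 0.54) and without BRM014 replicate 1 (log2 difference 0.55, adjusted p = 0.24). CD83 lost its call without PMA replicate 1 (log2 difference -0.33, adjusted p = 0.092) and BRM014 replicate 2 (log2 difference -0.26, adjusted p = 0.17). NFKBIB lost it without PMA replicate 2 (log2 difference -0.13, adjusted p = 0.35), BRM014 replicate 1 (log2 difference -0.34, adjusted p = 0.054) or BRM014 replicate 2 (log2 difference -0.32, adjusted p = 0.07). NFKBIE was lower at 18.2 and 22 CPM with BRM014, 88.7 and 88.3 CPM with PMA and 30.9 and 40.7 CPM in DMSO (log2 difference -2.14 ± 0.12, adjusted p = 5.7e-12). Among 22 genes of protein kinase C and diacylglycerol signalling, 7 were higher and 8 lower. PRKCD, the delta isoform, was at 210.2 and 204 CPM with BRM014, 346 and 354 CPM with PMA and 295 and 309 CPM in DMSO (log2 difference -0.76 ± 0.06, adjusted p = 2.2e-09). PRKCA, the alpha isoform, was at 121 and 125 CPM with BRM014, 152 and 119.5 CPM with PMA and 102 and 98.1 CPM in DMSO (log2 difference -0.14 ± 0.09, adjusted p = 0.15). RASGRP3, an exchange factor that diacylglycerol recruits, was at 1.73 and 0.928 CPM with BRM014, 11.9 and 9.95 CPM with PMA and 1.19 and 1.6 CPM in DMSO (log2 difference -3.02 ± 0.32, adjusted p = 9.4e-08). DGKZ, a kinase that removes diacylglycerol, was higher at 787 and 871 CPM with BRM014, 318 and 412 CPM with PMA and 302 and 302 CPM in DMSO (log2 difference 1.18 ± 0.10, adjusted p = 1.6e-09). Other leading members were DGKG (log2 difference -2.91 ± 0.21), RASGRP4 (log2 difference -2.35 ± 0.28, and -3.15 without BRM014 replicate 2) and CHN2 (log2 difference -1.35 ± 0.34). MARCKSL1, a relative of the kinase substrate MARCKS, was higher at 74.5 and 75.3 CPM with BRM014, 22.9 and 22.9 CPM with PMA and 30.9 and 26.8 CPM in DMSO (log2 difference 1.71 ± 0.12, adjusted p = 2.5e-10).

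Receptors for growth factors and cytokines were lower in 18 of 27 and higher in 4 (FLT3, IL1R1, IL4R and TNFRSF21). CSF2RB, the common beta chain of the GM-CSF receptor, was at 4.77 and 5.51 CPM with BRM014, 68.4 and 50.5 CPM with PMA and 35.3 and 35.6 CPM in DMSO (log2 difference -3.53 ± 0.15, adjusted p = 8.1e-14). CCR2, the monocyte chemokine receptor, was at 53.3 and 52.2 CPM with BRM014, 369.5 and 395 CPM with PMA and 309 and 296 CPM in DMSO (log2 difference -2.86 ± 0.10, adjusted p = 8.0e-15). IFNGR1, a chain of the interferon gamma receptor, was at 106 and 104 CPM with BRM014, 545 and 382 CPM with PMA and 92.9 and 104 CPM in DMSO (log2 difference -2.14 ± 0.11, adjusted p = 2.1e-12). TNFRSF9, the co-stimulatory receptor 4-1BB, was lower at 0.262 and 0.116 CPM with BRM014 and 8.22 and 1.03 CPM with PMA (log2 difference -4.55 ± 0.90, adjusted p = 2.0e-04, and 41.6-fold lower [95% counting interval 11.4 to 347] without BRM014 replicate 1, -2.39 without PMA replicate 1 and -5.37 without PMA replicate 2), with most of its reads in PMA replicate 1. IL1R1 was higher at 42.5 and 44.3 CPM with BRM014, 5.41 and 4.18 CPM with PMA and 5.39 and 3.35 CPM in DMSO (log2 difference 3.17 ± 0.17, adjusted p = 1.5e-11). FLT3 was at 211 and 207 CPM with BRM014, 90.4 and 83.1 CPM with PMA and 149 and 149 CPM in DMSO (log2 difference 1.27 ± 0.06, adjusted p = 1.2e-12).

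Lysosomal genes divided, with 7 of 30 higher and 15 lower (median -0.20). Against DMSO, 23 rose with BRM014 (median 0.98) and 27 with PMA (median 1.26). CTSS, a protease of antigen processing, was at 80 and 75.5 CPM with BRM014, 893 and 777 CPM with PMA and 165 and 170.1 CPM in DMSO (log2 difference -3.42 ± 0.10, adjusted p = 4.0e-16). ASAH1, acid ceramidase, was at 106 and 115 CPM with BRM014, 688 and 593 CPM with PMA and 115 and 120.4 CPM in DMSO (log2 difference -2.53 ± 0.08, adjusted p = 1.6e-15). For these 2 genes the BRM014 libraries were at or below DMSO. CTSD, cathepsin D, was at 1205 and 1278 CPM with BRM014, 2069 and 2472 CPM with PMA and 304 and 296 CPM in DMSO (log2 difference -0.87 ± 0.08, adjusted p = 2.5e-08). CTSL, cathepsin L, was higher at 553 and 591 CPM with BRM014, 348 and 387 CPM with PMA and 76.7 and 76.5 CPM in DMSO (log2 difference 0.64 ± 0.08, adjusted p = 4.3e-07). PSAP, prosaposin, was at 1489 and 1514 CPM with BRM014, 1438 and 1472 CPM with PMA and 246 and 243 CPM in DMSO (log2 difference 0.05 ± 0.06, adjusted p = 0.53). All 4 treated libraries lay above DMSO for CTSD, CTSL and PSAP. The enzymes GLA (log2 difference -2.81 ± 0.11) and CTSZ (log2 difference -2.14 ± 0.11) were lower. LAMP2, a membrane protein of the lysosome, was higher at 982 and 902 CPM with BRM014, 560.1 and 519 CPM with PMA and 422 and 456 CPM in DMSO (log2 difference 0.80 ± 0.07, adjusted p = 6.7e-09). Of 17 subunits of the proton pump V-ATPase, 11 were lower and 2 higher (ATP6V0A1 and ATP6V1G1). ATP6V1G1 lost its call without PMA replicate 2 (log2 difference 0.11, adjusted p = 0.29) and BRM014 replicate 2 (log2 difference 0.17, adjusted p = 0.18). The count of higher subunits was 1 under each of these, with no filter, with a replicate block and in fits of the 4 or of the THP-1 libraries alone, and 4 with scaling by library size alone. ATP6V0B was at 87.6 and 91.1 CPM with BRM014, 283 and 353 CPM with PMA and 235 and 252 CPM in DMSO (log2 difference -1.83 ± 0.10, adjusted p = 3.2e-12). The leading lower members also included ATP6V0D2 (30.9-fold lower, 95% counting interval 8.2 to 260.4), ATP6V1F (log2 difference -1.33 ± 0.13) and ATP6V1H (log2 difference -1.31 ± 0.08). ATP6V0A1 was higher at 183 and 185 CPM with BRM014, 98.1 and 90.9 CPM with PMA and 43.3 and 40.2 CPM in DMSO (log2 difference 0.96 ± 0.07, adjusted p = 3.2e-10).

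**Figure D4:**
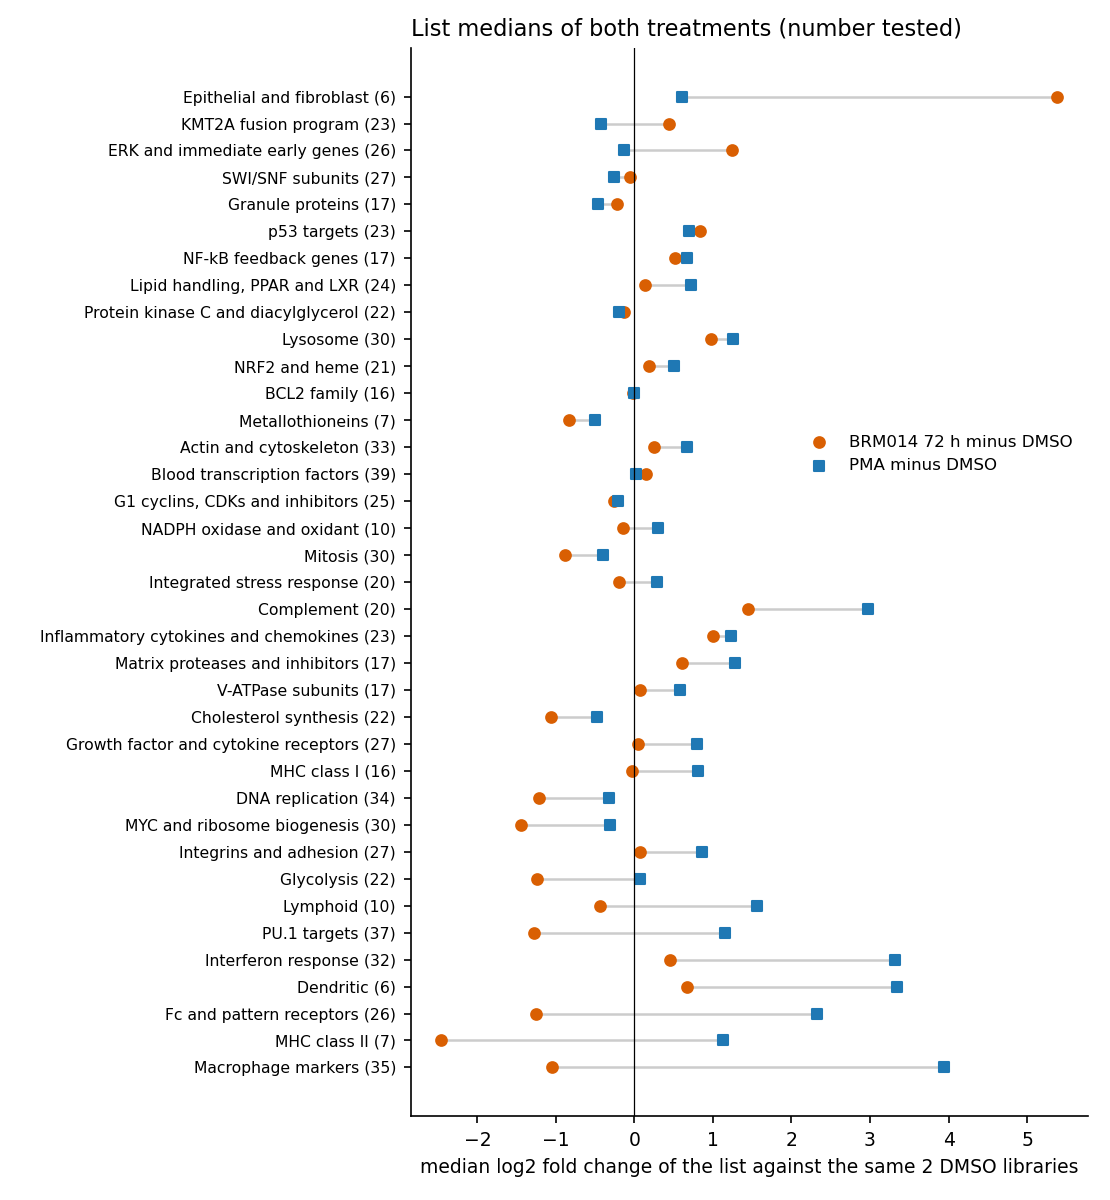
Median log2 difference from the same 2 DMSO libraries (x axis) of each list with at least 6 tested members, as circles for BRM014 72 h and squares for PMA. The macrophage list lies at 3.94 with PMA and -1.05 with BRM014, and the replication list at -0.33 and -1.21.

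Glycolysis was lower with BRM014 in 18 of 22 genes and higher in 1 (0 in a fit of the 4 libraries alone; median -1.43). HK1, a hexokinase, was at 18.3 and 19 CPM with BRM014, 108 and 128 CPM with PMA and 53.7 and 49.7 CPM in DMSO (log2 difference -2.66 ± 0.09, adjusted p = 4.0e-15). HK3 was at 12.3 and 12.1 CPM with BRM014, 67.8 and 84.4 CPM with PMA and 22.1 and 25 CPM in DMSO (log2 difference -2.64 ± 0.14, adjusted p = 2.5e-12). PKM, pyruvate kinase, was at 593 and 679.6 CPM with BRM014, 1709 and 2071 CPM with PMA and 903 and 936 CPM in DMSO (log2 difference -1.57 ± 0.09, adjusted p = 3.6e-12). SLC2A1, the glucose transporter GLUT1, was at 60.7 and 67.7 CPM with BRM014, 194 and 206 CPM with PMA and 308 and 315 CPM in DMSO (log2 difference -1.64 ± 0.09, adjusted p = 6.2e-12). For HK1, HK3 and PKM the PMA pair was above DMSO and the BRM014 pair below, while for SLC2A1 both were below. FBP1, of gluconeogenesis, was lower with a log2 difference of -2.56 ± 0.21. ENO2 was the higher member at 1.57 and 0.928 CPM with BRM014 and 0.153 and 0.572 CPM with PMA (log2 difference 1.81 ± 0.46, adjusted p = 0.0022, and 8.27-fold higher [95% counting interval 2.66 to 41.6] without PMA replicate 2), a call lost without PMA replicate 1 (log2 difference 1.13, adjusted p = 0.054).

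Cholesterol synthesis was lower in 17 of 22 genes (median -0.65) and higher in 3, LSS and SREBF2 among them. INSIG1, which holds back sterol regulatory proteins, was at 18.4 and 19.4 CPM with BRM014, 63.2 and 58.1 CPM with PMA and 109 and 114 CPM in DMSO (log2 difference -1.69 ± 0.08, adjusted p = 3.6e-13). MSMO1, a methylsterol oxidase, was at 14.6 and 13.9 CPM with BRM014, 43.4 and 35.9 CPM with PMA and 42.6 and 40.9 CPM in DMSO (log2 difference -1.48 ± 0.12, adjusted p = 9.9e-10). The sterol carrier STARD4 was lower with a log2 difference of -1.69 ± 0.13. Of 24 genes of lipid handling, 7 were higher and 11 lower. ANGPTL4, an inhibitor of lipoprotein lipase and a PPAR target, was at 16.9 and 16.9 CPM with BRM014, 0.46 and 0.744 CPM with PMA and 0.125 and 0.050 CPM in DMSO (log2 difference 4.81 ± 0.31, adjusted p = 4.2e-11). PDK4, which blocks pyruvate entry to mitochondria, was lower at 4.62 and 4.06 CPM with BRM014, 32.8 and 26.8 CPM with PMA and 1.25 and 1.2 CPM in DMSO (log2 difference -2.78 ± 0.30, adjusted p = 1.9e-06). The lower members also included NCEH1 (log2 difference -2.90 ± 0.15) and FABP5 (log2 difference -2.83 ± 0.12). PLIN2, a coat protein of lipid droplets, was at 299.9 and 292 CPM with BRM014, 274 and 278 CPM with PMA and 43 and 45.6 CPM in DMSO (log2 difference 0.10 ± 0.08, adjusted p = 0.30), and all 4 treated libraries were above DMSO.

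Genes of amino acid supply and the integrated stress response were lower in 14 of 20 and higher in 3 (DDIT4, TRIB3 and VLDLR). PSAT1, of serine synthesis, was at 18.9 and 18.3 CPM with BRM014, 68.5 and 77.7 CPM with PMA and 101 and 103 CPM in DMSO (log2 difference -1.97 ± 0.10, adjusted p = 1.9e-12). NUPR1 was at 6.66 and 8.0 CPM with BRM014, 47.3 and 63.2 CPM with PMA and 3.32 and 4.1 CPM in DMSO (log2 difference -2.91 ± 0.27, adjusted p = 1.3e-08). ALDH1L2, of mitochondrial folate, was at 9.13 and 9.91 CPM with BRM014, 60.5 and 43.6 CPM with PMA and 53.3 and 55.6 CPM in DMSO (log2 difference -2.45 ± 0.15, adjusted p = 1.9e-11). CHAC1 was lower with a log2 difference of -3.05 ± 0.54, and -3.79 without BRM014 replicate 2. ATF4, the factor of the response, was at 261 and 267 CPM with BRM014, 275 and 334 CPM with PMA and 355 and 346 CPM in DMSO (log2 difference -0.20 ± 0.09, adjusted p = 0.064). Of 21 NRF2 and heme genes, 6 were higher and 10 lower. GCLC, of glutathione synthesis, was at 34.9 and 34.7 CPM with BRM014, 440.3 and 349 CPM with PMA and 39.7 and 40.9 CPM in DMSO (log2 difference -3.50 ± 0.10, adjusted p = 3.3e-16). ME1, malic enzyme, was lower with a log2 difference of -2.14 ± 0.16. HMOX1, heme oxygenase, was at 22.2 and 27.3 CPM with BRM014, 93 and 92.5 CPM with PMA and 1.88 and 1.25 CPM in DMSO (log2 difference -1.91 ± 0.17, adjusted p = 5.4e-09), above DMSO in all 4 treated libraries. Of the ferritin chains, the light chain FTL was lower at 2021 and 2097 CPM with BRM014, 7772 and 9453 CPM with PMA and 2716 and 2814 CPM in DMSO (log2 difference -2.06 ± 0.11, adjusted p = 1.5e-12). The heavy chain FTH1 was higher at 1550.0 and 1669.8 CPM with BRM014, 1238 and 1038 CPM with PMA and 234 and 224 CPM in DMSO (log2 difference 0.50 ± 0.10, adjusted p = 2.1e-04). NQO1, a quinone reductase, was at 93.5 and 96.7 CPM with BRM014, 101 and 103 CPM with PMA and 33.2 and 34.2 CPM in DMSO (log2 difference -0.10 ± 0.08, adjusted p = 0.26). Of 7 metallothionein genes and regulators, 2 were higher (MT2A and SLC30A1) and 3 lower, led by MT1G at 0.734 and 0.87 CPM with BRM014 and 1.89 and 3.72 CPM with PMA (log2 difference -1.79 ± 0.39, adjusted p = 7.2e-04). Close copies make these genes uncertain. Called too were MT1X (log2 difference -1.44 ± 0.19) and MTF1 (log2 difference -0.39 ± 0.11), of which MTF1 lost its call without PMA replicate 1 (log2 difference -0.21, adjusted p = 0.11). MT2A was higher at 36.1 and 40 CPM with BRM014 and 14.3 and 20.6 CPM with PMA (log2 difference 1.13 ± 0.19, adjusted p = 4.8e-05).

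Targets of p53 gave 10 higher and 8 lower of 23 (median 0.02). THP-1 is known to carry a mutated p53, so these genes are named for their usual regulator only. TP53I3, an oxidoreductase, was at 46 and 51.8 CPM with BRM014, 6.08 and 5.72 CPM with PMA and 2.5 and 3.85 CPM in DMSO (log2 difference 3.05 ± 0.16, adjusted p = 1.6e-12). BBC3, the pro-apoptotic PUMA, was at 22.3 and 27.4 CPM with BRM014, 3.57 and 3.66 CPM with PMA and 4.76 and 6.0 CPM in DMSO (log2 difference 2.78 ± 0.18, adjusted p = 6.7e-11). MDM2, the p53 ligase, was at 332 and 305 CPM with BRM014, 149.8 and 141 CPM with PMA and 147 and 152 CPM in DMSO (log2 difference 1.13 ± 0.07, adjusted p = 1.4e-11). The PMA libraries lay below DMSO for BBC3 and overlapped it for MDM2, and the BRM014 libraries were above. TP53INP1 was higher with a log2 difference of 1.43 ± 0.15. PLK3 was lower at 2.26 and 1.86 CPM with BRM014 and 9.04 and 10.1 CPM with PMA (log2 difference -2.21 ± 0.25, adjusted p = 2.4e-07). GDF15, a stress cytokine, was lower at 0 and 0.29 CPM with BRM014, 3.83 and 3.72 CPM with PMA and 0.125 and 0.15 CPM in DMSO (log2 difference -4.71 ± 0.56, adjusted p = 4.3e-07, and -3.67 without BRM014 replicate 1 and at least 24-fold lower without BRM014 replicate 2). In the BCL2 family 5 of 16 were higher (BBC3, BCL2L2, BOK, MCL1 and PMAIP1) and 7 lower. BCL2 was at 59.9 and 64.5 CPM with BRM014, 68.7 and 71.3 CPM with PMA and 272 and 275 CPM in DMSO (log2 difference -0.17 ± 0.07, adjusted p = 0.049), far below DMSO in all 4 treated libraries, and its call was lost without PMA replicate 2 (log2 difference -0.14, adjusted p = 0.14) and without BRM014 replicate 1 (log2 difference -0.12, adjusted p = 0.29). MCL1, another anti-apoptotic member, was higher at 592 and 537 CPM with BRM014, 420.4 and 387 CPM with PMA and 392 and 396 CPM in DMSO (log2 difference 0.48 ± 0.06, adjusted p = 2.2e-06). The list's leading members also included BAK1 (log2 difference -0.94 ± 0.10), BIK (log2 difference -0.68 ± 0.20) and BAX (log2 difference -0.57 ± 0.12), of which BIK lost its call without PMA replicate 2 (log2 difference -0.46, adjusted p = 0.086). BCL2A1 had 1 read with BRM014 and was at 0 and 0.058 CPM with BRM014 and 3.83 and 4.06 CPM with PMA (143-fold lower, 95% counting interval 25.3 to 5688, adjusted p = 6.5e-08).

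Genes of the actin cytoskeleton were lower in 20 of 33 and higher in 8. CORO1A, an actin regulator of leukocytes, was at 75.2 and 81.6 CPM with BRM014, 665 and 940.0 CPM with PMA and 433 and 447 CPM in DMSO (log2 difference -3.36 ± 0.13, adjusted p = 1.3e-14). Actin itself, ACTB, was at 4911 and 4942 CPM with BRM014, 11174 and 12052 CPM with PMA and 8829 and 8992 CPM in DMSO (log2 difference -1.24 ± 0.08, adjusted p = 2.0e-11). ANXA2 was at 208 and 231 CPM with BRM014, 833 and 933 CPM with PMA and 157 and 148 CPM in DMSO (log2 difference -2.01 ± 0.08, adjusted p = 2.3e-14). Lower too were TUBB6 (log2 difference -1.82 ± 0.11) and FSCN1 (log2 difference -1.72 ± 0.09). On the higher side stood CTTN, cortactin, at 158 and 159 CPM with BRM014, 0.664 and 0.40 CPM with PMA and 0.564 and 0.60 CPM in DMSO (log2 difference 8.18 ± 0.18, adjusted p = 5.8e-18). SYNPO, synaptopodin, was at 242 and 253 CPM with BRM014, 11.2 and 10.4 CPM with PMA and 8.14 and 5.35 CPM in DMSO (log2 difference 4.52 ± 0.13, adjusted p = 4.5e-16). MAP1A, a microtubule protein, was at 30 and 33.9 CPM with BRM014, 0.204 and 1.66 CPM with PMA and 0.0626 and 0.70 CPM in DMSO (log2 difference 5.14 ± 0.37, adjusted p = 2.6e-10, and 4.26 without PMA replicate 1 and 7.24 without PMA replicate 2). These 3 were high in both BRM014 libraries, and PMA overlapped DMSO for CTTN and MAP1A and lay slightly above it for SYNPO. MYH9, the heavy chain of non-muscle myosin, was higher at 4445 and 4755 CPM with BRM014, 1839.6 and 1861 CPM with PMA and 1519.8 and 1521 CPM in DMSO (log2 difference 1.31 ± 0.06, adjusted p = 2.5e-13).

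Integrins and adhesion genes were lower in 18 of 27 and higher in 3 (ICAM3, ITGB1 and THBS1), or 5 without PMA replicate 1 and 6 with scaling by library size alone. ITGB7 was at 28.8 and 32.9 CPM with BRM014, 387 and 474 CPM with PMA and 44.1 and 47.6 CPM in DMSO (log2 difference -3.80 ± 0.13, adjusted p = 3.7e-15). ICAM1 was at 1.42 and 2.43 CPM with BRM014, 24.5 and 12.6 CPM with PMA and 1.5 and 0.65 CPM in DMSO (log2 difference -3.28 ± 0.37, adjusted p = 2.4e-07). CD44, the hyaluronan receptor, was at 18.8 and 23.3 CPM with BRM014, 178 and 141 CPM with PMA and 127 and 120.3 CPM in DMSO (log2 difference -2.92 ± 0.13, adjusted p = 1.2e-13). ITGB8 was at 0.0525 and 0 CPM with BRM014 and 0.562 and 0.572 CPM with PMA, and its call was lost when any of the 4 libraries was left out, for example PMA replicate 1 (adjusted p = 0.052). THBS1, thrombospondin, was higher at 29.7 and 34.5 CPM with BRM014, 5.57 and 1.43 CPM with PMA and 0.939 and 1.05 CPM in DMSO (log2 difference 3.17 ± 0.36, adjusted p = 2.1e-07, and 4.48 without PMA replicate 1 and 2.53 without PMA replicate 2), with PMA libraries that differed from each other. ITGA6 was at 72.6 and 84.9 CPM with BRM014, 136 and 122 CPM with PMA and 9.83 and 9.6 CPM in DMSO (log2 difference -0.72 ± 0.11, adjusted p = 1.5e-05), above DMSO with both treatments. Of 17 matrix proteases and inhibitors, 10 were lower and 1 was higher (2 with scaling by library size alone). MMP9, gelatinase B, was at 0.577 and 0.464 CPM with BRM014, 73.6 and 64.6 CPM with PMA and 0.25 and 0.80 CPM in DMSO (log2 difference -7.03 ± 0.30, adjusted p = 6.9e-14). ADAMDEC1 had 3 reads with BRM014 and was at 0 and 0.174 CPM with BRM014 and 262 and 151 CPM with PMA (2539-fold lower, 95% counting interval 868 to 12310.0, adjusted p = 2.1e-14). SERPINA1, alpha-1 antitrypsin, was lower with a log2 difference of -3.59 ± 0.44. SERPINB2, an inhibitor of plasminogen activators, was at 3.41 and 2.03 CPM with BRM014, 133 and 145 CPM with PMA and 394 and 418 CPM in DMSO (log2 difference -5.66 ± 0.20, adjusted p = 4.3e-14), below DMSO in both groups. TIMP3, an inhibitor of metalloproteases, was the higher one at 250 and 225 CPM with BRM014, 85.7 and 76.4 CPM with PMA and 84.4 and 85.3 CPM in DMSO (log2 difference 1.55 ± 0.10, adjusted p = 3.9e-09). TIMP1 was at 168 and 167 CPM with BRM014, 143 and 194 CPM with PMA and 67.1 and 62.8 CPM in DMSO (log2 difference -0.01 ± 0.12, adjusted p = 0.95). PLAUR, the urokinase receptor, was at 73.9 and 73.9 CPM with BRM014, 67.1 and 73.8 CPM with PMA and 27.1 and 27.7 CPM in DMSO (log2 difference 0.07 ± 0.09, adjusted p = 0.51), both above DMSO with either treatment.

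Genes of the KMT2A fusion program were higher with BRM014 in 14 of 23 (median 0.57) and lower in 4 (BCL2, KIT, TCF4 and ZEB2), or 2 without PMA replicate 2, in a fit of the 4 libraries alone and with scaling by library size alone. KIT lost its call without PMA replicate 2 (log2 difference -0.70, adjusted p = 0.084) and without BRM014 replicate 2 (log2 difference -0.66, adjusted p = 0.13). SKIDA1 was at 80.5 and 74.7 CPM with BRM014, 10.5 and 11 CPM with PMA and 28.2 and 29.9 CPM in DMSO (log2 difference 2.85 ± 0.10, adjusted p = 2.6e-15). SENP6, which removes SUMO, was at 1032 and 939 CPM with BRM014, 351 and 295 CPM with PMA and 425 and 442 CPM in DMSO (log2 difference 1.61 ± 0.12, adjusted p = 5.2e-10). HOXA9, a homeobox gene central to the program, was at 14.4 and 15.5 CPM with BRM014, 4.19 and 6.86 CPM with PMA and 7.95 and 7.9 CPM in DMSO (log2 difference 1.44 ± 0.20, adjusted p = 3.8e-06). HOXA10 was at 60.7 and 49 CPM with BRM014, 25.8 and 27.9 CPM with PMA and 28.4 and 29 CPM in DMSO (log2 difference 1.03 ± 0.14, adjusted p = 1.7e-06). For HOXA9 and HOXA10 the BRM014 pair lay above DMSO and the PMA pair below it. Higher members also included HOXA3 (log2 difference 2.30 ± 0.54, and 8.67-fold higher [95% counting interval 2.81 to 43.3] without PMA replicate 1) and HOXA4 (log2 difference 1.46 ± 0.43). MYB was at 383 and 363 CPM with BRM014, 273 and 316 CPM with PMA and 664 and 682 CPM in DMSO (log2 difference 0.34 ± 0.07, adjusted p = 3.0e-04), below DMSO in both groups. Among granule genes 4 of 17 were higher (CAMP, ELANE, RNASE2 and SRGN) and 5 lower (LYZ, RNASE3, S100A12, S100A8 and S100A9). SRGN, serglycin, was higher at 5841 and 5640.1 CPM with BRM014, 839 and 957 CPM with PMA and 1760.3 and 1855 CPM in DMSO (log2 difference 2.68 ± 0.08, adjusted p = 3.2e-16). CAMP, cathelicidin, was higher at 25.3 and 25.3 CPM with BRM014, 4.39 and 5.66 CPM with PMA and 2.44 and 0.70 CPM in DMSO (log2 difference 2.33 ± 0.32, adjusted p = 2.9e-06). S100A8 was lower at 37.7 and 41.8 CPM with BRM014, 506 and 626 CPM with PMA and 44.5 and 35.3 CPM in DMSO (log2 difference -3.83 ± 0.15, adjusted p = 3.1e-14). S100A9 was at 103 and 94.1 CPM with BRM014, 1160.0 and 1589.9 CPM with PMA and 126 and 104 CPM in DMSO (log2 difference -3.80 ± 0.15, adjusted p = 1.9e-14). S100A12 was lower with a log2 difference of -3.21 ± 0.36. Neither S100A8 nor S100A9 passed the test between BRM014 and DMSO.

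Markers of other cell types were read beside these results, and their part in them was not tested. Of 10 tested lymphoid markers, 5 were lower (CD3E, CD79B, GNLY, NKG7 and PAX5) and 0 higher, or 3 lower without PMA replicate 1, where PAX5 lost its call (log2 difference -1.02, adjusted p = 0.055). Their summed level was 8.45 and 10.1 CPM with BRM014, 32.7 and 32.7 CPM with PMA and 27.8 and 30.7 CPM in DMSO. The lower ones included GNLY (log2 difference -3.17 ± 0.43), CD79B (log2 difference -3.01 ± 0.62, and 23.7-fold lower [95% counting interval 4.07 to 956] without BRM014 replicate 1 and -2.36 without BRM014 replicate 2) and NKG7 (log2 difference -2.97 ± 0.29). CD3E was at 0.105 and 0.058 CPM with BRM014 and 0.664 and 0.686 CPM with PMA, and its call was lost when any of the 4 libraries was left out, for example PMA replicate 1 (adjusted p = 0.056), while MS4A1 was at 0 in all 6 libraries. Of the epithelial and fibroblast markers 2 of 6 were higher (1 by DESeq2) and 1, PDGFRB, was lower (2 without BRM014 replicate 2 or with no filter). COL1A1, collagen type I, was at 109 and 116 CPM with BRM014, 0.357 and 2.0 CPM with PMA and 0.501 and 0.75 CPM in DMSO (log2 difference 6.61 ± 0.33, adjusted p = 1.1e-12, and 5.80 without PMA replicate 1 and 8.27 without PMA replicate 2). CDH1, E-cadherin, was at 33.8 and 28.6 CPM with BRM014, 0.306 and 0 CPM with PMA and 0 CPM in both libraries in DMSO (log2 difference 7.54 ± 0.66, adjusted p = 1.9e-07, and at least 183-fold higher without PMA replicate 1 and 6.64 without PMA replicate 2), and DESeq2 did not call it. The other defining markers did not follow, since EPCAM had 0 to 4 reads in each of the 6 libraries, and COL1A2, the partner chain of COL1A1, was at 0 in all 6. The summed level of the list was 144 and 147 CPM with BRM014, 5.77 and 6.35 CPM with PMA and 3.82 and 4.55 CPM in DMSO. Of the erythroid and megakaryocyte markers, ITGA2B was higher at 5.67 and 6.61 CPM with BRM014 and 0.306 and 0.40 CPM with PMA (log2 difference 4.10 ± 0.29, adjusted p = 2.3e-10), and 0 were lower (1 without PMA replicate 1), while the globin gene HBB and the platelet genes PF4 and PPBP were at 0 in all 6. The summed level of that list was 6.03 and 7.01 CPM with BRM014, 0.82 and 0.97 CPM with PMA and 4.26 and 4.2 CPM in DMSO. Of 6 dendritic markers 4 were lower (CCR7, CD1C, CLEC10A and LAMP3) and 1, FLT3, was higher, or 2 lower without PMA replicate 1 or in a fit of the 4 libraries alone, with summed levels of 212 and 208 CPM with BRM014, 109.6 and 90.3 CPM with PMA and 150.4 and 149 CPM in DMSO. The called members included CLEC10A (log2 difference -4.40 ± 0.76, and -3.38 without BRM014 replicate 1 and at least 15.8-fold lower without BRM014 replicate 2) and CCR7 (50.9-fold lower, 95% counting interval 8.75 to 2050.0, and 8.31-fold lower [95% counting interval 0.822 to 409] without PMA replicate 1 and 89-fold lower [95% counting interval 15.2 to 3588] without PMA replicate 2), of which CCR7 lost its call without PMA replicate 1 (adjusted p = 0.16). LAMP3 lost its call without PMA replicate 1 (log2 difference 0.14, adjusted p = 0.91), BRM014 replicate 1 (log2 difference -2.58, adjusted p = 0.065) or BRM014 replicate 2 (log2 difference -2.55, adjusted p = 0.065). CD1C was at 0.63 and 0.174 CPM with BRM014 and 4.54 and 3.66 CPM with PMA (log2 difference -3.31 ± 0.62, adjusted p = 3.4e-04, and 23.7-fold lower [95% counting interval 7.97 to 116] without BRM014 replicate 1 and -2.69 without BRM014 replicate 2). Most of the summed level of the dendritic list was FLT3 in every library, so the sums follow that gene and not the lower members.

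Genes chosen for opposite moves from DMSO are a description, since that choice used the same values. MAFA, a factor of the large MAF family, was at 3.51 and 3.25 CPM with BRM014, 0 CPM in both libraries with PMA and 0.313 and 0.30 CPM in DMSO. GSG1L was at 4.3 and 4.64 CPM with BRM014, 0.0511 and 0 CPM with PMA and 0.501 and 0.55 CPM in DMSO. PIGR, the receptor that carries immunoglobulin A across epithelia, was at 0 CPM in both libraries with BRM014, 5.52 and 6.18 CPM with PMA and 0.25 and 0.10 CPM in DMSO. ADGRE1, the human counterpart of the mouse macrophage antigen F4/80, was at 0.0525 and 0 CPM with BRM014, 21.1 and 14.9 CPM with PMA and 0.501 and 0.95 CPM in DMSO. DMSO lay between the treated groups for all 4. Genes chosen for a rise from DMSO with both treatments and a log2 difference under 0.5 between them included SLC26A11, a sulfate transporter, at 8.66 and 10 CPM with BRM014, 11.8 and 7.89 CPM with PMA and 0.0626 and 0 CPM in DMSO. GFRA2, a receptor for neurturin, was at 10.3 and 12.5 CPM with BRM014, 14.9 and 11.4 CPM with PMA and 0.188 and 0.050 CPM in DMSO. For both, the 2 treated groups overlapped and DMSO was at most 0.188 CPM.

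The remaining genes with large differences and at least 5 CPM in the higher group fell on both sides. SEMA3E, a secreted guidance protein, was at 34.5 and 31.5 CPM with BRM014, 0 and 0.229 CPM with PMA and 0.25 and 0.20 CPM in DMSO (log2 difference 8.16 ± 0.49, adjusted p = 9.2e-11, and 7.13 without PMA replicate 1 and at least 216-fold higher without PMA replicate 2). WNT4 had 1 read with PMA and was at 5.4 and 5.04 CPM with BRM014 and 0.0511 and 0 CPM with PMA (194-fold higher, 95% counting interval 34.4 to 7700.0, adjusted p = 7.1e-07). CNGB1, a channel subunit, had 1 read with PMA and was at 5.98 and 4.12 CPM with BRM014 and 0.0511 and 0 CPM with PMA (189-fold higher, 95% counting interval 33.5 to 7499, adjusted p = 4.5e-07). ENTPD8, which hydrolyses nucleotides, had 2 reads with PMA and was at 7.92 and 8.29 CPM with BRM014 and 0 and 0.114 CPM with PMA (150.1-fold higher, 95% counting interval 41.2 to 1245, adjusted p = 4.9e-09). TRPM8, the cold-sensing channel, was at 0 CPM in both libraries with BRM014, 37.4 and 23.9 CPM with PMA and 4.7 and 3.8 CPM in DMSO (at least 375-fold lower, adjusted p = 1.2e-09). GPA33 was at 0 CPM in both libraries with BRM014, 22.1 and 26.4 CPM with PMA and 11.5 and 12.3 CPM in DMSO (at least 292-fold lower, adjusted p = 2.1e-09). For TRPM8 and GPA33 the transcript was present in DMSO and in PMA and had no read with BRM014. DCANP1 overlaps the gene TIFAB on the same strand, so strand cannot separate their reads and the value of DCANP1 is uncertain. It was at 0 CPM in both libraries with BRM014, 44.6 and 33.2 CPM with PMA and 35.9 and 36.7 CPM in DMSO. The noncoding transcripts LINC00694 (at least 82.3-fold higher, with 0 reads in the lower group) and LOC105370401 (121-fold higher, 95% counting interval 41.1 to 590.2) were higher with BRM014.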

How the data were processed

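Polyadenylated RNA from THP-1 cells was sequenced by the authors, who aligned reads to hg38 with HISAT2 2.1.0 and used HTSeq and DESeq2, per the submitters' processing notes. The deposited files hold raw counts of reads per gene, 1 file per library. The annotation and the strand setting are not given in the sources used here, so genes that overlap another gene are uncertain. Of the 308 genes looked up for this text that had a GENCODE position, 71 overlap another protein-coding gene.

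Summary rows that name no gene entered neither library sizes nor tests. They held reads outside genes, whose shares are given with the libraries. Genes were kept by edgeR's filterByExpr with a minimum count of 10 (16794 of 28063), scaled by TMM, and tested with edgeR 4.0.16's quasi-likelihood test in 1 fit of all 22 libraries with a coefficient for each of 11 groups, and p-values were adjusted by Benjamini-Hochberg across all genes tested. The standard error of a log2 difference is its size over the root of F. The procedure was tested on simulated data with the same spread in every group, which does not cover the wider spread of the PMA pair. In the results, fitted folds of genes with a group at 0 reads were replaced by bounds against 3 counts over the group, and those with 1 to 3 reads by a ratio with a 95% counting interval. Where the other group had under 40 reads, the level alone is given. A value without a library is given where it moved over 1.5 times, for such genes only for libraries of the higher group.

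The comparison, its members and the gene lists were chosen with earlier results of these data known. Genes named are the 12 with the largest change in each direction at 5 CPM or more, the 4 leading called members of each list with others whose role needs it, 12 set regulators and markers, and genes with opposite or equal moves from DMSO. Those differing most between the PMA libraries were also taken, and members behind counts of 5 or fewer were named after their values were seen. Not every gene these rules pick is printed, and some are not reported here. Promoters come from RefSeq, with 11 motifs searched on both strands, 3 of which were added after results were seen. Alternatives were other scalings, no filter, DESeq2 1.42.0, smaller fits, a replicate block, a fold minimum and leaving out each library.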

Additional observations from a re-analysis of the deposited data

Results flagged for a closer look

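Reads counted in no annotated gene made up a mean of 18.98% of the counted reads in the 2 BRM014 libraries, against 16.16% in the 2 DMSO libraries. These rows name no gene and entered no comparison. The difference was not tested.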

How the results depend on the processing

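The count of 10100 genes that differed between BRM014 and PMA ran from 7615 in a fit of the 4 libraries alone to 10223 with library size alone, and 4895 passed with a log2 difference of at least 1. It was 8762 to 9899 when 1 library was left out. Against DMSO, leaving out 1 library gave 8451 to 8712 genes for BRM014 and 4454 to 6330 for PMA, and a fit of the 4 libraries alone gave 3016 for PMA (1993 higher, 1023 lower). List members called numbered 608, with 570 to 599 when 1 library was left out. The library left alone in its group was taken to vary like the other groups. The replicate numbers did not pair the libraries (r = 0.0364 between the BRM014 and PMA deviations). A replicate block gave 8998 genes for the direct comparison, 8821 and 4717 against DMSO, and 583 list members.

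Of the named genes called for BRM014 minus PMA, the call ended with scaling by library size alone for BCL2, CD83, KIT, MARCKS, MTF1, NFKBIB and SMARCA2, with median-of-ratios factors for BCL2, with no filter for ATP6V1G1, BCL2 and CD3E and by DESeq2 for C1QB, CD3E, CDH1, FABP4, HLA-F and ITGB8. It ended in a fit of the 4 libraries for ATP6V1G1, BCL2, BIK, C3, CD83, CSF1, CYBA, ENO2, IFITM2, ITGB1, KIT, LAMP3, MYB, NFKBIB, SMARCA2, SREBF2, TRAF1 and TRIB3, in a fit of the THP-1 libraries for ATP6V1G1, CD83, HLA-F and TRAF1, and with the block for ATP6V1G1, BCL2, CD83, NFKBIB and TRAF1. Among named genes not called, a call was gained with library size alone by CEBPA, PLAUR, PLIN2, PSAP and SRF. It was gained with no filter by ATF4, BIRC3, CCL5, PFDN6 and POLD1, and with the block by POLD1. For such genes the outcome also depended on PMA replicate 1 in ATF4, PFDN6 and POLD1. It depended on PMA replicate 2 in APOE, BIRC3, CEBPA, IL1B, PRKCA and SRF, and on BRM014 replicate 1 in BIRC3 and PFDN6.

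Leaving out 1 library at a time changed the sign of the log2 difference BRM014 minus PMA for ALOX5 (-1.09 to 3.38), IL1B (-1.34 to 1.29), LAMP3 (-3.44 to 0.14) and SMDT1 (-6.45 to 0.48), in each case without PMA replicate 1. It changed the sign of PMA minus DMSO for ALOX5 (-0.80 to 4.97), BIRC3 (-2.04 to 1.51), CEBPE (-0.58 to 0.46), CYBA (-0.006 to 0.94), PFDN6 (-0.68 to 7.15), SMDT1 (-0.89 to 6.04), without PMA replicate 1 for ALOX5, BIRC3 and SMDT1 and without PMA replicate 2 for the others. The fitted values of SMDT1, with 3 reads with BRM014 and 1 in PMA replicate 2, and of PFDN6, with 3 reads in PMA replicate 1, depend on the prior count. The cause was not tested. With 2 libraries a group, small differences and low counts limit what can be called.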
